A study of Mus musculus with 8 samples.

Results

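The transcriptome of embryonic mouse skin epithelium lacking the histone acetyltransferase MOF was compared with that of control epithelium at E16.5, before birth. The libraries were chosen by their titles, and they make up 4 of the 8 RNA-seq libraries of the series, 2 labelled Control and 2 of the genotype MOFfl/fl/K14Cre (MOF cKO). All 4 came from dorsal skin dissociated with collagenase and trypsin, and all carried the K14-H2BGFP reporter, by which living GFP-positive cells were collected by flow cytometry. In MOF cKO the floxed gene was removed by Cre under the Keratin 14 promoter, which is active in basal cells of skin epithelium, and the study describes its controls as wildtype or heterozygous littermates. The mice were of mixed C57Bl/6J and CD-1 background and of either sex, and the sources used here give neither the sex nor the number of embryos behind each library, so that p-values measure the spread between these libraries only.

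MOF, encoded by Kat8, places an acetyl group on lysine 16 of histone H4 and works within either the MSL or the NSL complex. At this stage the epidermis stratifies. Basal cells, which hold Keratins 5 and 14, give rise to suprabasal cells with Keratins 1 and 10, and later to the cornified envelope of the skin barrier, while hair placodes grow downward under Wnt, ectodysplasin and hedgehog signals. Basal cells of embryonic skin carry a primary cilium, the antenna through which hedgehog signals are received.

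Between 22484018 and 27561688 read counts per library fell on named genes, and 1 count was worth 0.0326 to 0.0502 CPM, the read count relative to the TMM-scaled library total. Levels are given in this unit, always as control 1 and control 2 against MOF cKO 1 and MOF cKO 2. The labelled cell type held against its markers. Krt5 had 19647 and 19442 against 16381 and 21611 CPM and Krt14 had 10038 and 9690.4 against 10437 and 12266 CPM. Epcam, of epithelial membranes, had 169 and 185 against 208 and 208 CPM. Of the 15 epithelial markers 6 were called higher by the rule given below and none lower (2 higher and 1 lower under library totals). Their log2 differences had a median of 0.45 and ran from -0.57, for Trp63, to 1.505. Fibroblast markers were not absent from the sort, with summed levels of 2878 and 3706 CPM in the controls and 3168 and 3915 CPM in MOF cKO, and the median log2 difference of its 15 tested members was 1.02. No member of that list was called by the rule given below, but 3 were higher with DESeq2, 8 with every gene of at least 1 count kept and 7 without control 2. Macrophage markers summed to 24.7 and 49.8 CPM in the controls and to 150.3 and 185.1 CPM in MOF cKO, and 13 of their 21 tested members were called higher, also under library totals. Their part in the results was not tested, and in a mixture of this kind fewer cells of a type and less RNA per cell cannot be told apart. Control 1 stood apart in Xist, the RNA that coats the inactive X chromosome of female cells, at 1517 CPM against 9.99 to 12 CPM in the other 3 libraries, so that sex was not matched between the groups.

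A gene was called when its adjusted p was at most 0.01 by the quasi-likelihood test of edgeR, with Benjamini-Hochberg adjustment over all 13956 genes tested, and its level differed by more than 1.5-fold. By this rule 1338 genes (9.59%) were lower and 1395 genes (10%) were higher in MOF cKO, which is the background against which the gene lists below are read. Of these, 953 were lower and 769 higher by more than 2-fold, while 29 were lower and 127 higher by more than 16-fold. The split rests on the scaling. With library totals alone in place of TMM factors, the median log2 difference of all genes moved from -0.02 to -0.32 and the calls moved to 2743 lower and 769 higher, so that 78.1% of calls were lower instead of 49%. For most lists of rising genes, the count that remained under library totals is therefore given beside the count under TMM. Every adjusted p below comes from that test, and any gene said to have risen or fallen passed it. For genes that were not called, the log2 difference, MOF cKO minus control, is given with its SE. Separation of the groups was common. Both MOF cKO libraries were below both controls in 5268 of the genes tested and above both in 4867, together 72.6%.

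Kat8 itself (chr7:127912516-127925837, plus strand) had 443 and 408 counts against 248 and 329, or 14.4 and 14.7 CPM against 12.4 and 13.9 CPM (log2 difference -0.14 ± 0.18, adjusted p = 0.554). Both MOF cKO libraries were below both controls, by less than the test could separate from the spread. The counts cover the whole gene, so that exons outside the deleted part are counted too and the value does not check the label. Of the 13 genes of the list of MOF and its partners in the MSL and NSL complexes, 12 were not called, with log2 differences between -0.14 for Kat8 and 0.38 for Wdr5. The scaffold gene Msl1 had 144 and 165 against 143 and 161 CPM, Msl2 had 71.8 and 65.5 against 76.5 and 68 CPM and Msl3 had 29.1 and 25.1 against 30.2 and 29.6 CPM. In the NSL complex, Kansl1 had 129 and 129 against 152 and 131 CPM, Kansl3 had 109 and 112 against 108 and 120.0 CPM and the chromatin readers Phf20 and Phf20l1 had 52.1 and 51 against 64.3 and 52.7 CPM and 76.9 and 60.6 against 84.5 and 59.4 CPM. Mcrs1, Ogt and Hcfc1, which NSL shares with other assemblies, had log2 differences of -0.09, -0.13 and -0.08. Kansl2, an NSL subunit, went from 81.8 and 78.2 CPM to 128 and 119 CPM, a 1.54-fold rise (log2 difference 0.62 ± 0.11, adjusted p = 0.00429), and its call was not kept with library totals alone.

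Among called genes with at least 10 CPM in the higher group and no overlap between the groups, the 12 largest rises were those of Tslp, Mmp3, Krt6b, Gm5416, Serpinb3a, Lyz2, Krt6a, Gsdmc, Mmp9, Serpinb6c, C1qb and Sprr1b. Tslp, an epithelial cytokine that keratinocytes release on barrier injury, led with 3 and 4 counts against 982 and 1996, and went from 0.0978 and 0.144 CPM to 49.3 and 84.5 CPM, a 536-fold rise (log2 difference 9.07 ± 0.43, adjusted p = 9.10e-05). Gsdmc, a pore-forming gasdermin, went from 0.522 and 0.939 CPM to 46 and 41.7 CPM, a 60.3-fold rise (log2 difference 5.91 ± 0.27, adjusted p = 9.10e-05). Gm5416, which lies in the stefin gene cluster, went from 0.294 and 0.181 CPM to 39.4 and 34.9 CPM, a 152-fold rise (log2 difference 7.25 ± 0.27, adjusted p = 5.08e-05). Serpinb6c had 0.326 and 0.0722 against 11.9 and 9.65 CPM, 51.8-fold higher. Lyz2 and C1qb are markers of macrophages. Lyz2 had 0.0978 and 0.289 against 21.2 and 22.8 CPM, 113-fold higher. C1qb had 0.163 and 0.325 against 11 and 13.9 CPM, 50.8-fold higher. That the groups did not overlap was part of the rule by which these genes were chosen, and is not a result.

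The 12 largest falls among genes at 10 CPM or more in the controls were those of Dync2li1, Morn4, Dnahc1, B9d1, Rbbp9, Pcca, Lrrc4, St6galnac2, Ift57, Tex9, Oscp1 and Tbc1d19. Dync2li1, B9d1 and Ift57 belong to the primary cilium. Dnahc1, a dynein heavy chain of motile cilia, went from 8.35 and 12.4 CPM to 0.151 and 0.974 CPM, a 17.7-fold fall (log2 difference -4.15 ± 0.64, adjusted p = 0.00285). Morn4 went from 11.3 and 15.1 CPM to 0.201 and 1.23 CPM, a 17.7-fold fall (log2 difference -4.15 ± 0.60, adjusted p = 0.00221). Tex9 had 16.4 and 16.6 against 0.904 and 1.91 CPM, 11.6-fold lower. Oscp1 had 9.36 and 12.9 against 1.36 and 0.593 CPM, 11.6-fold lower. Pcca, a subunit of mitochondrial propionyl-CoA carboxylase, went from 12.1 and 13.1 CPM to 1.2 and 0.805 CPM, a 12.6-fold fall (log2 difference -3.65 ± 0.33, adjusted p = 5.39e-04). Lrrc4, a synaptic adhesion gene, had 29.4 and 60.6 against 1.76 and 5.55 CPM, 12.1-fold lower. Rbbp9, a serine hydrolase gene, had 13.5 and 13.9 against 1.66 and 0.423 CPM, 13.5-fold lower. St6galnac2, a sialyltransferase gene, had 22.2 and 18.5 against 2.11 and 1.31 CPM, 12-fold lower. Tbc1d19 had 11.8 and 13.2 against 1.05 and 1.14 CPM, 11.3-fold lower. As for the rises, genes whose groups overlapped were left out of this ranking by the rule.

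**Figure D1:**
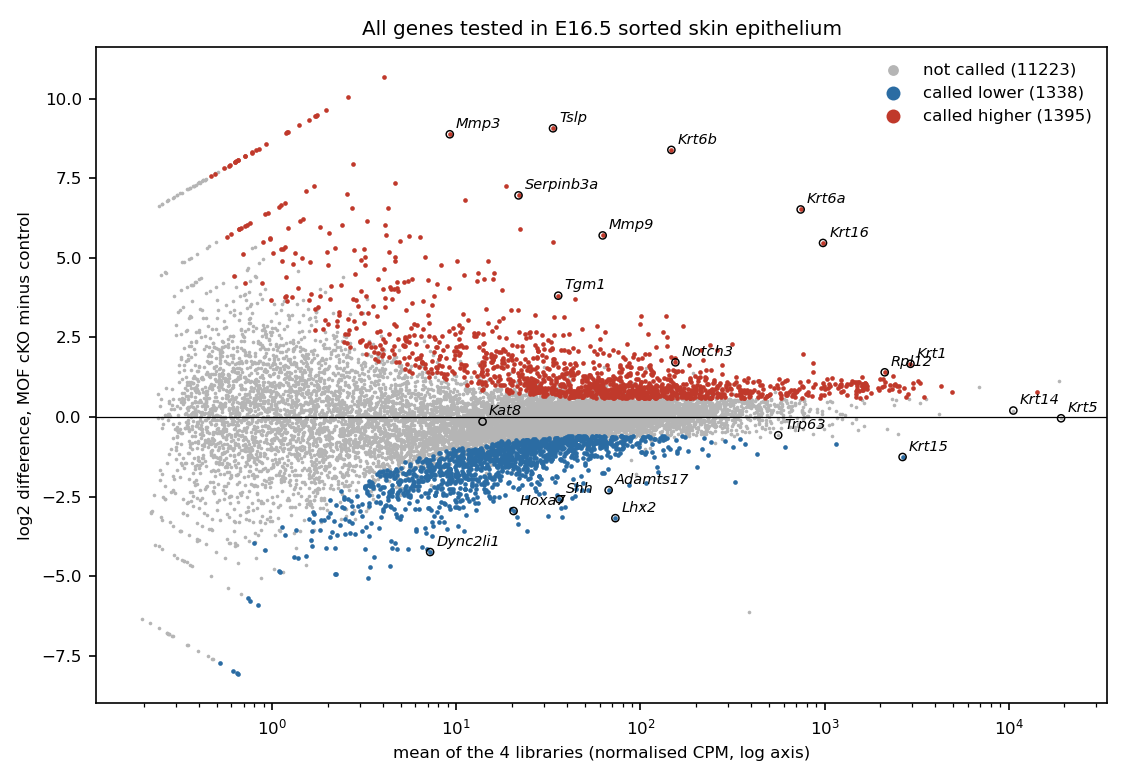
Each point is a gene tested, with its mean normalised CPM over the 4 libraries on a log axis and its log2 difference, MOF cKO minus control, on the other axis, and named genes are circled. The 1338 genes called lower are in blue and the 1395 called higher in red. Krt6a, Krt6b and Krt16 combined high levels with large rises, while Krt5 and Krt14, the most abundant keratins, lay near 0, and the uncalled point near -6 is Xist.

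Of 4 tested stress and wound keratins 3 were called higher, of 9 basal and suprabasal keratins 2 were lower and 2 higher, and of 8 simple, periderm and mucosal keratins 1 was lower, the same counts as under library totals. Keratins pair into the intermediate filaments of epithelial cells, and Krt6a, Krt6b and Krt16 are known for their induction in wounded or hyperproliferative epidermis. Krt6a (chr15:101689910-101694307, minus strand) went from 15.2 and 16.9 CPM to 1446 and 1491 CPM, a 91.6-fold rise (log2 difference 6.52 ± 0.13, adjusted p = 2.29e-06). Its neighbour Krt6b (chr15:101676023-101680287, minus strand) went from 1.01 and 0.722 CPM to 205 and 383 CPM, a 335-fold rise (log2 difference 8.39 ± 0.40, adjusted p = 9.10e-05). Krt6a and Krt6b are near-identical copies, so that reads could be split between them. Krt16 went from 41.2 and 45.7 CPM to 1778 and 2061 CPM, a 44.2-fold rise (log2 difference 5.47 ± 0.14, adjusted p = 6.63e-06). Krt17, also present in hair placodes, was not called, with 1566 and 2198 CPM against 2314 and 3262 CPM (log2 difference 0.57 ± 0.20, adjusted p = 0.0632).

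Per kilobase of exon, Krt5 and Krt14 remained the most abundant keratins in every library, at 8943 and 8849 against 7456 and 9837 CPM per kb for Krt5 and 5710 and 5512 against 5937 and 6977 CPM per kb for Krt14. On the same scale Krt16 stood at 26.3 and 29.2 CPM per kb in the controls and at 1136 and 1317 CPM per kb in MOF cKO, where it passed Krt15 in both libraries. Neither Krt5 (log2 difference -0.04 ± 0.14, adjusted p = 0.836) nor Krt14 (log2 difference 0.20 ± 0.11, adjusted p = 0.183) was called. Krt15, a basal keratin, went from 4159.7 and 3327 CPM to 1507 and 1626 CPM, a 2.39-fold fall (log2 difference -1.26 ± 0.13, adjusted p = 7.45e-04). The keratin pair of suprabasal cells rose. Krt1 went from 1549 and 1255 CPM to 4227 and 4690.5 CPM, a 3.18-fold rise (log2 difference 1.67 ± 0.13, adjusted p = 3.94e-04). Krt10 went from 2253 and 1813 CPM to 4177 and 4659.8 CPM, a 2.17-fold rise (log2 difference 1.12 ± 0.13, adjusted p = 0.00104). Krt77, another early suprabasal keratin, had 15.7 and 14.8 CPM against 17.4 and 15.5 CPM (log2 difference 0.11 ± 0.17, adjusted p = 0.654). Krt79, which marks the cells that open the hair canal, went from 176 and 205 CPM to 38.4 and 76.9 CPM, a 3.29-fold fall (log2 difference -1.72 ± 0.29, adjusted p = 0.0038). Krt8, the simple-epithelium keratin also found in periderm and in Merkel cells, went from 25.8 and 25 CPM to 3.41 and 5.67 CPM, a 5.55-fold fall (log2 difference -2.47 ± 0.26, adjusted p = 7.62e-04), while its partner Krt18 had 6.36 and 6.9 CPM against 10.04 and 7.83 CPM (log2 difference 0.43 ± 0.26, adjusted p = 0.224). Merkel cell markers as a list summed to 31.5 and 23.7 CPM against 11.1 and 12 CPM, and their part in the Krt8 difference was not tested.

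**Figure D2:**
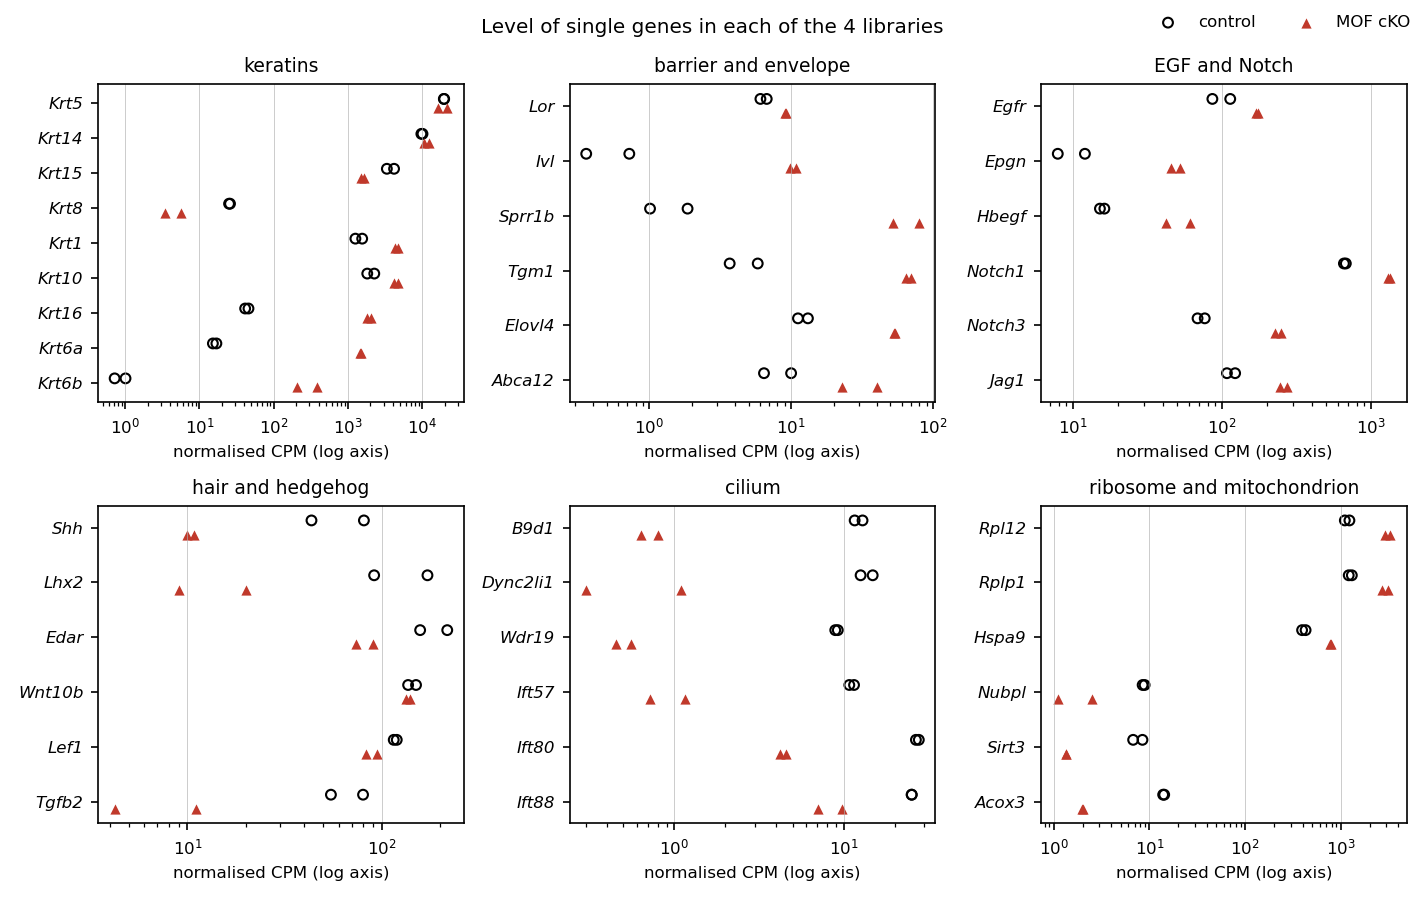
Normalised CPM on log axes for single genes in each library, with open circles for the 2 control libraries and red triangles for the 2 MOF cKO libraries, in 6 panels by role. Krt5 and Wnt10b overlapped between the groups and Krt14, Lor and Lef1 were not called. All other genes shown were called and did not overlap.

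The cornified envelope is the protein shell that replaces the plasma membrane of dying keratinocytes, and transglutaminases crosslink its precursors. Of 50 genes listed, 23 had counts enough for the test, 11 were called higher and none lower, with 8 higher under library totals. The median log2 difference of the tested members was 1.02, beside -0.02 for all genes. Sprr1b went from 1.86 and 1.01 CPM to 79.3 and 52.1 CPM, a 45.2-fold rise (log2 difference 5.5 ± 0.33, adjusted p = 1.75e-04). Sprr1a, of the same small proline-rich family, went from 13 and 13.4 CPM to 25 and 28.4 CPM, a 2.02-fold rise (log2 difference 1.02 ± 0.16, adjusted p = 0.00299). The Sprr genes are close copies of each other, and reads could be shared among them. Ivl, the early envelope precursor involucrin, went from 0.359 and 0.722 CPM to 10.8 and 9.82 CPM, a 19.11-fold rise (log2 difference 4.26 ± 0.42, adjusted p = 6.81e-04). Tgm1, the transglutaminase of the plasma membrane, went from 5.81 and 3.68 CPM to 69.6 and 64.1 CPM, a 14-fold rise (log2 difference 3.81 ± 0.22, adjusted p = 1.75e-04). Tgm3, a transglutaminase of later layers, went from 3.72 and 1.95 CPM to 21 and 15.3 CPM, a 6.36-fold rise (log2 difference 2.67 ± 0.35, adjusted p = 0.00147). Lor, encoding loricrin, the major late precursor, was not called, with 6.72 and 6.07 CPM against 9.04 and 9.23 CPM (log2 difference 0.51 ± 0.24, adjusted p = 0.131).

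Lipid lamellae between the cornified cells seal the barrier. Among 21 tested genes of their synthesis, 8 were called higher and 1 lower, and the same counts held under library totals. Elovl4, the elongase of ultra-long acyl chains, went from 13.1 and 11.2 CPM to 54.3 and 53.3 CPM, a 4.43-fold rise (log2 difference 2.15 ± 0.15, adjusted p = 2.63e-04). Nipal4, a gene of inherited ichthyosis, went from 7.31 and 7.73 CPM to 36.7 and 48.7 CPM, a 5.69-fold rise (log2 difference 2.51 ± 0.19, adjusted p = 3.49e-04). Cyp4f39, the hydroxylase of those chains, went from 7.11 and 5.2 CPM to 22.4 and 26.7 CPM, a 3.98-fold rise (log2 difference 1.99 ± 0.22, adjusted p = 8.75e-04). Abca12, the transporter that fills lamellar granules, went from 9.98 and 6.43 CPM to 40.5 and 22.9 CPM, a 3.85-fold rise (log2 difference 1.94 ± 0.32, adjusted p = 0.00359). The lipoxygenase gene Aloxe3 rose from a low level (0.587 and 0.505 against 3.81 and 4.11 CPM, 7.19-fold higher), whereas its partner Alox12b had 0.978 and 0.505 CPM against 0.402 and 1.06 CPM (log2 difference -0.02 ± 0.81, adjusted p = 0.991). Cers3, the ceramide synthase of the epidermis, was higher in both MOF cKO libraries without being called, at 35.9 and 28.3 CPM against 55.5 and 48 CPM (log2 difference 0.69 ± 0.16, adjusted p = 0.013). The single call in the other direction was Smpd1, the acid sphingomyelinase, which went from 14.8 and 17.1 CPM to 3.87 and 4.74 CPM, a 3.71-fold fall (log2 difference -1.89 ± 0.23, adjusted p = 0.00124).

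Proteases and inhibitors of cornified cell shedding had 7 of 17 tested called higher and none lower (4 under library totals). Ctsc, the dipeptidase cathepsin C, went from 43 and 35.5 CPM to 165 and 123 CPM, a 3.66-fold rise (log2 difference 1.87 ± 0.17, adjusted p = 5.65e-04). Ctsd, encoding cathepsin D, went from 147 and 158 CPM to 311 and 319 CPM, a 2.07-fold rise (log2 difference 1.05 ± 0.10, adjusted p = 6.39e-04). Casp14, the caspase of cornification, went from 8.81 and 8.27 CPM to 29.4 and 29.8 CPM, a 3.46-fold rise (log2 difference 1.79 ± 0.16, adjusted p = 5.36e-04). Spink5, the inhibitor that restrains the kallikreins, had 3.23 and 3.47 against 11.3 and 11.4 CPM, 3.39-fold higher. The membrane protease gene Tmprss13 had 23.1 and 20.4 against 38.7 and 43.4 CPM, 1.89-fold higher. St14, encoding matriptase, had 91 and 88 against 123 and 158 CPM, 1.57-fold higher. Klk7 was not called, at 5.71 and 5.88 CPM against 7.73 and 10.6 CPM (log2 difference 0.66 ± 0.27, adjusted p = 0.0918).

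Transcription factors of the epidermis, not all of which drive differentiation, showed 5 calls, all higher, among 20 tested (4 higher and 2 lower under library totals). Ets1, a factor of proliferating keratinocytes, went from 4.92 and 7.0 CPM to 29.6 and 45.6 CPM, a 6.32-fold rise (log2 difference 2.66 ± 0.27, adjusted p = 7.11e-04). Zfp750, a zinc finger factor of terminal differentiation, went from 30.9 and 29.7 CPM to 79.5 and 71.5 CPM, a 2.49-fold rise (log2 difference 1.32 ± 0.12, adjusted p = 5.56e-04). Grhl3, a grainyhead factor of barrier formation, went from 40.3 and 33.2 CPM to 87.2 and 76.2 CPM, a 2.22-fold rise (log2 difference 1.15 ± 0.14, adjusted p = 0.00124). Grhl1, of the same family, went from 39.1 and 41.5 CPM to 86.5 and 72.1 CPM, a 1.97-fold rise (log2 difference 0.98 ± 0.13, adjusted p = 0.00172). Klf4 (log2 0.18 ± 0.10), Gata3 (log2 0.37 ± 0.12) and Ovol1 (log2 0.39 ± 0.18) were not called. Trp63, the master regulator of the epithelial lineage, was lower in both MOF cKO libraries at 708 and 632 CPM against 484 and 417 CPM (log2 difference -0.57 ± 0.12, adjusted p = 0.0087), which lies under the fold of the call.

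Cell contacts were described in 4 lists. In desmosomes, the rivets that anchor keratin filaments between cells, 6 of 13 tested genes were called higher, a count that fell to 2 higher and 1 lower under library totals. Pkp2, a plakophilin of the desmosomal plaque, went from 0.913 and 1.12 CPM to 6.53 and 6.31 CPM, a 6.3-fold rise (log2 difference 2.65 ± 0.39, adjusted p = 0.00232). Dsc1, a desmocollin of upper layers, went from 8.06 and 6.75 CPM to 22.7 and 17.4 CPM, a 2.71-fold rise (log2 difference 1.44 ± 0.22, adjusted p = 0.00254). Dsc2 went from 8.12 and 7.15 CPM to 24.2 and 14.8 CPM, a 2.55-fold rise (log2 difference 1.35 ± 0.27, adjusted p = 0.00726). Dsg3, a desmoglein of basal cells, went from 138 and 101 CPM to 310.3 and 207 CPM, a 2.16-fold rise (log2 difference 1.11 ± 0.22, adjusted p = 0.0070). Perp had 1037 and 991 against 1711 and 1584 CPM, 1.62-fold higher. Jup, the plakoglobin gene, had 756 and 768 against 1194 and 1250.0 CPM, 1.6-fold higher, while Dsp (log2 0.57 ± 0.13) and Dsg1a (log2 0.37 ± 0.16) were not called. In tight junctions 3 of 17 were higher, 17.6% beside 10% over all genes (2 under library totals). Cldn4, a claudin, went from 36.9 and 32.5 CPM to 97.2 and 99.9 CPM, a 2.84-fold rise (log2 difference 1.5 ± 0.12, adjusted p = 4.02e-04). F11r, an adhesion receptor there, had 118 and 121 against 203 and 184 CPM, 1.62-fold higher. Cldn1, the claudin of the epidermal barrier, had 88.9 and 71.8 CPM against 119 and 102 CPM (log2 difference 0.46 ± 0.14, adjusted p = 0.0397), and Ocln had 7.63 and 5.2 CPM against 10.9 and 8.17 CPM (log2 difference 0.57 ± 0.30, adjusted p = 0.168). In adherens junctions and polarity genes 4 of 20 were higher, 20% beside 10% over all genes (2 higher and 3 lower under library totals). The nectin gene Pvrl4 went from 31.8 and 32.5 CPM to 109 and 90.8 CPM, a 3.1-fold rise (log2 difference 1.63 ± 0.13, adjusted p = 4.02e-04). Pvrl1, another nectin gene, went from 89.8 and 84.8 CPM to 181 and 165 CPM, a 1.98-fold rise (log2 difference 0.99 ± 0.11, adjusted p = 8.55e-04). Pard6b had 16.7 and 11.8 against 26.9 and 29.6 CPM, 1.98-fold higher. Llgl2 had 39.6 and 37.4 against 59.4 and 67.7 CPM, 1.65-fold higher, while Cdh1 (log2 0.45 ± 0.12) and Ctnna1 (log2 0.42 ± 0.10) were not called.

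Of 16 tested genes for hemidesmosomes and integrins, 4 were called higher and none lower, and none of the 4 was kept under library totals. These were Plec (1.9-fold higher), Cd151 (1.71-fold higher), Itgav (1.7-fold higher) and Itgb1 (1.62-fold higher). The core hemidesmosome genes Itga6 (log2 difference -0.26), Itgb4 (0.45), Col17a1 (-0.28), Dst (0.14) and Itga3 (0.49) were not called. Itga6 had 296 and 238 against 253 and 193 CPM and its partner Itgb4 had 596 and 577 against 773 and 834 CPM. In the basement membrane list 7 of 25 were lower and 2 higher (9 lower and none higher under library totals). Members of the Fraser complex, which ties epidermis to dermis, were among the falls. Frem1 went from 38.3 and 49.5 CPM to 10.2 and 8.38 CPM, a 4.72-fold fall (log2 difference -2.24 ± 0.19, adjusted p = 4.88e-04). Fras1 went from 369 and 283 CPM to 176 and 108 CPM, a 2.29-fold fall (log2 difference -1.2 ± 0.23, adjusted p = 0.00678). Frem2 went from 616 and 576 CPM to 291 and 243 CPM, a 2.23-fold fall (log2 difference -1.16 ± 0.12, adjusted p = 7.63e-04). Col4a6, a minor collagen chain of the membrane, went from 104 and 91 CPM to 26.5 and 31.3 CPM, a 3.38-fold fall (log2 difference -1.75 ± 0.14, adjusted p = 4.02e-04). Col7a1, the anchoring fibril collagen, went from 1335 and 1638 CPM to 776 and 863 CPM, a 1.81-fold fall (log2 difference -0.86 ± 0.13, adjusted p = 0.00247). Members called in the other direction were Col18a1, whose fragment is endostatin, and Grip1, which carries Fraser proteins to the surface. Col18a1 went from 495 and 537 CPM to 766 and 857 CPM, a 1.57-fold rise (log2 difference 0.65 ± 0.11, adjusted p = 0.00372). Grip1 went from 25.5 and 23.9 CPM to 44.1 and 39.5 CPM, a 1.69-fold rise (log2 difference 0.76 ± 0.14, adjusted p = 0.00504). The laminin genes Lama3 (log2 0.17 ± 0.10) and Lamb3 (log2 -0.11 ± 0.14) and the collagen gene Col4a1 (log2 0.15 ± 0.20) were not called.

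**Figure D3:**
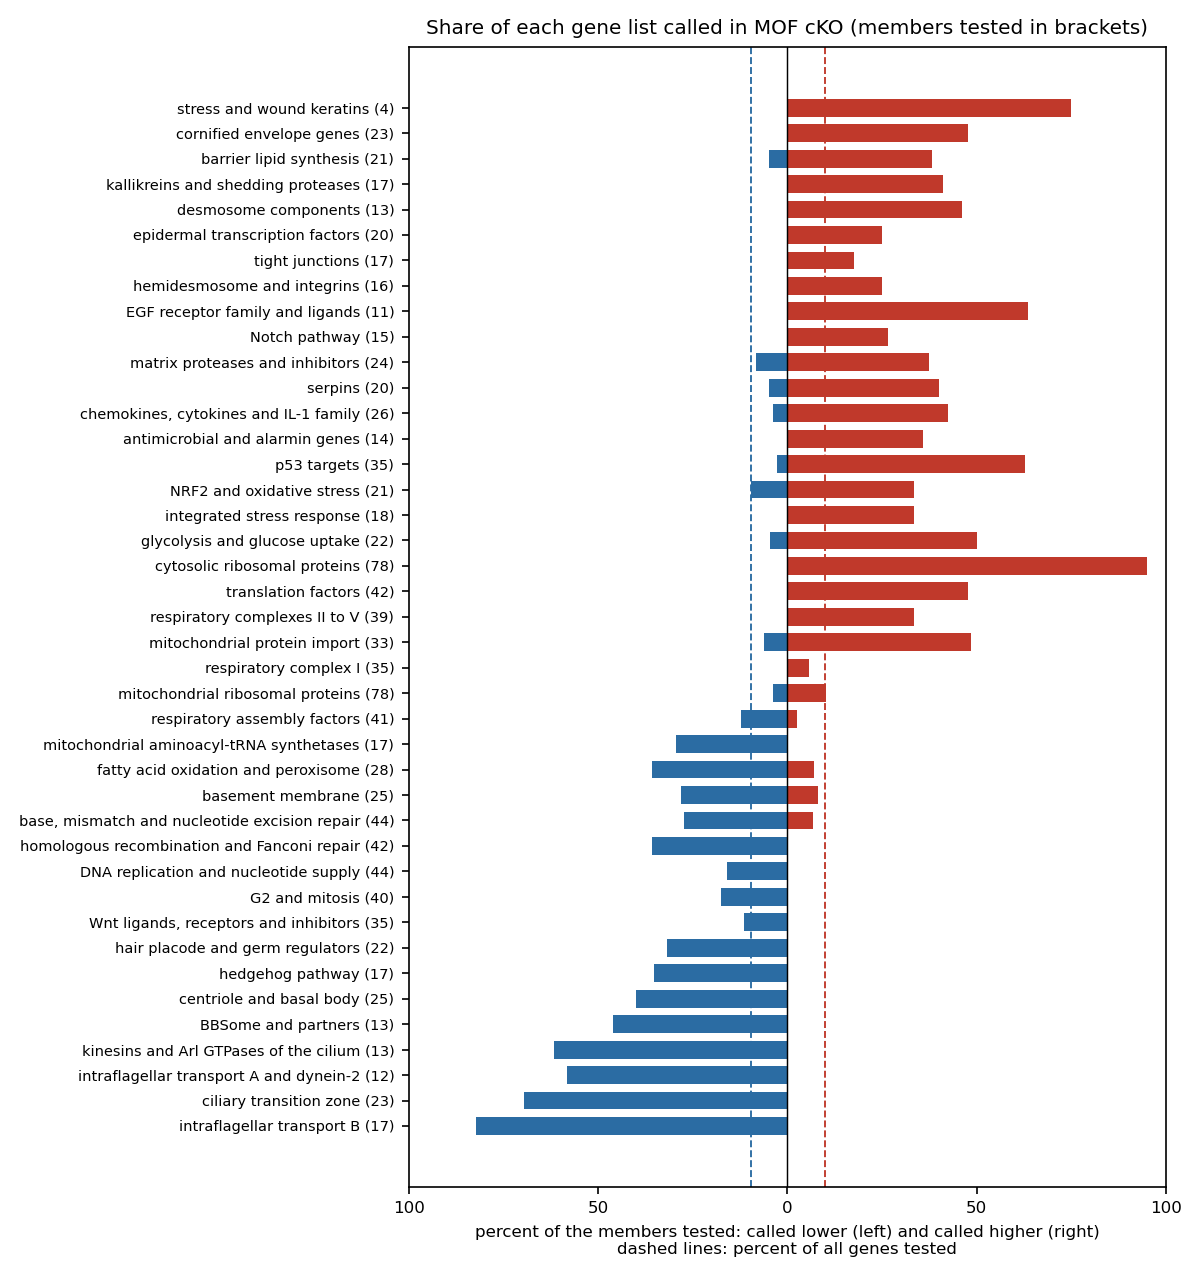
For each gene list, the percentage of tested members called lower is drawn to the left in blue and the percentage called higher to the right in red, with the number tested in brackets and dashed lines at 9.59% lower and 10% higher for all genes. Modules of the cilium had up to 82.4% of members lower, and cytosolic ribosomal proteins had 94.9% higher. The calls use TMM scaling, and under library totals the higher calls of respiratory complexes II to V, hemidesmosomes and integrins were 0.

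The primary cilium is built by intraflagellar transport (IFT), in which IFT-B trains ride outward on kinesin-2, IFT-A trains ride back on dynein-2, a transition zone gates the base and the BBSome carries membrane cargo. Genes of all 6 ciliary lists fell and no tested member was called higher. In IFT-B, 14 of 17 tested genes were lower, beside 9.59% over all genes, with a median log2 difference of -1.24. Ttc30b, a member of this list, was at the limit of detection in MOF cKO, with 64 and 59 counts against 2 and 1, a ratio of 30.6 (95% counting interval 10.2 to 150.4, adjusted p = 0.00446). Here the ratio is control over MOF cKO. Ttc26 went from 8.54 and 8.3 CPM to 0.402 and 0.55 CPM, a 17.4-fold fall (log2 difference -4.12 ± 0.40, adjusted p = 6.32e-04). Ift57, a subunit that contacts kinesin, went from 11.5 and 10.8 CPM to 1.15 and 0.72 CPM, an 11.9-fold fall (log2 difference -3.58 ± 0.35, adjusted p = 6.77e-04). Ift80, a peripheral IFT-B subunit, went from 27.8 and 26.7 CPM to 4.57 and 4.19 CPM, a 6.22-fold fall (log2 difference -2.64 ± 0.18, adjusted p = 2.64e-04). Rabl5 went from 9.69 and 9.57 CPM to 2.36 and 1.57 CPM, a 4.92-fold fall (log2 difference -2.3 ± 0.33, adjusted p = 0.00214). Ift74 went from 28.1 and 26 CPM to 5.77 and 6.86 CPM, a 4.27-fold fall (log2 difference -2.09 ± 0.18, adjusted p = 5.13e-04). Ift88, a core subunit whose loss removes cilia, went from 25.2 and 25.2 CPM to 9.79 and 7.07 CPM, a 3.0-fold fall (log2 difference -1.58 ± 0.20, adjusted p = 0.00145). Ift20, which also serves at the Golgi, was the only one of the 17 with a difference above 0, at 24.2 and 25.2 CPM against 30.9 and 36.2 CPM (log2 difference 0.44 ± 0.15, adjusted p = 0.0465). It was named after its values were seen.

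In IFT-A and dynein-2 all 12 tested genes were below the controls in both MOF cKO libraries. Over all 13956 genes tested, 5268 were below in the same way. In this list 7 genes were called, with a median of -1.29, and under library totals all 12 were called. Wdr19, an IFT-A core subunit, went from 9.23 and 8.92 CPM to 0.452 and 0.55 CPM, a 17.9-fold fall (log2 difference -4.16 ± 0.38, adjusted p = 5.39e-04). Dync2li1 (chr17:84626496-84655588, plus strand), the light intermediate chain of dynein-2, had 386 and 411 counts against 6 and 26 and went from 12.6 and 14.8 CPM to 0.301 and 1.1 CPM, an 18.9-fold fall (log2 difference -4.24 ± 0.49, adjusted p = 0.0010). Ift122, a core IFT-A subunit, went from 24.2 and 25.7 CPM to 5.92 and 3.94 CPM, a 5.08-fold fall (log2 difference -2.35 ± 0.24, adjusted p = 6.91e-04). Ttc21b went from 29.3 and 32.6 CPM to 8.83 and 6.31 CPM, a 4.09-fold fall (log2 difference -2.03 ± 0.21, adjusted p = 7.11e-04). Ift140, another core subunit, went from 49.2 and 55.6 CPM to 18.6 and 23.1 CPM, a 2.51-fold fall (log2 difference -1.33 ± 0.16, adjusted p = 0.00106). Dync2h1, the motor heavy chain, was lower at 25.3 and 17.3 CPM against 11.1 and 6.82 CPM (log2 difference -1.25 ± 0.29, adjusted p = 0.0135) without being called.

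In the transition zone 16 of 23 tested genes were lower, with a median of -1.60, the lowest of the 6 ciliary lists. B9d1 (chr11:61505144-61512931, plus strand) went from 11.6 and 12.9 CPM to 0.803 and 0.635 CPM, a 17-fold fall (log2 difference -4.09 ± 0.33, adjusted p = 4.02e-04). Membrane proteins of the same gate fell too. Tmem67 had 7.73 and 6.71 against 0.452 and 1.65 CPM, 6.73-fold lower. Tmem231 had 19.9 and 23.8 against 2.51 and 4.19 CPM, 6.46-fold lower. Tmem237 had 7.11 and 7.55 against 0.653 and 1.74 CPM, 6.04-fold lower. Mks1, a Meckel syndrome gene, went from 12.3 and 18.5 CPM to 4.67 and 6.06 CPM, a 2.86-fold fall (log2 difference -1.51 ± 0.28, adjusted p = 0.00572). In the BBSome list 6 of 13 were lower. Bbs1, a BBSome subunit, went from 13.9 and 15.3 CPM to 1.31 and 1.65 CPM, a 9.83-fold fall (log2 difference -3.3 ± 0.28, adjusted p = 4.45e-04). Bbs9 went from 14.2 and 13 CPM to 1.05 and 2.08 CPM, an 8.59-fold fall (log2 difference -3.1 ± 0.36, adjusted p = 9.79e-04). Arl6, the GTPase that recruits the BBSome, went from 7.73 and 10.2 CPM to 1.2 and 0.889 CPM, an 8.56-fold fall (log2 difference -3.1 ± 0.37, adjusted p = 0.00112). Ttc8 had 8.32 and 7.15 against 1.31 and 0.889 CPM, 7.06-fold lower. Bbs4 had 12.9 and 13.2 against 2.36 and 3.39 CPM, 4.52-fold lower.

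Among kinesins and Arl GTPases 8 of 13 were lower. Kinesin-2 motor and adaptor genes were among them. Kif3a went from 30.4 and 36.4 CPM to 9.44 and 11.3 CPM, a 3.21-fold fall (log2 difference -1.68 ± 0.18, adjusted p = 7.84e-04). Kif3c went from 26.9 and 28 CPM to 7.38 and 6.44 CPM, a 3.98-fold fall (log2 difference -1.99 ± 0.18, adjusted p = 5.15e-04). Kifap3, the adaptor, went from 37 and 35.6 CPM to 6.68 and 8.81 CPM, a 4.67-fold fall (log2 difference -2.23 ± 0.19, adjusted p = 4.39e-04). Kif7, which organises the ciliary tip for hedgehog signalling, went from 32.5 and 41.5 CPM to 5.67 and 10.9 CPM, a 4.43-fold fall (log2 difference -2.15 ± 0.30, adjusted p = 0.00191). Pde6d went from 15.3 and 14.7 CPM to 2.41 and 4.66 CPM, a 4.22-fold fall (log2 difference -2.08 ± 0.33, adjusted p = 0.00304), while Arl13b had 37.9 and 38.7 CPM against 28.5 and 26 CPM (log2 difference -0.49 ± 0.13, adjusted p = 0.0228). The centriole list moved least, with 10 of 25 lower and a median of -0.68. Its largest falls were those of Cep97 and Ccp110, a pair that caps the mother centriole. Cep97 went from 20.4 and 25.2 CPM to 2.36 and 4.53 CPM, a 6.54-fold fall (log2 difference -2.71 ± 0.31, adjusted p = 0.0010). Ccp110 went from 25.1 and 26.4 CPM to 5.77 and 5.38 CPM, a 4.62-fold fall (log2 difference -2.21 ± 0.18, adjusted p = 4.02e-04). Ttbk2, the kinase that removes that cap, went from 22.5 and 28.1 CPM to 6.93 and 7.03 CPM, a 3.62-fold fall (log2 difference -1.86 ± 0.19, adjusted p = 7.45e-04). Cetn2 had 22.2 and 25.5 against 7.28 and 5.55 CPM, 3.73-fold lower. Cep135 had 14.7 and 11.2 against 5.62 and 3.26 CPM, 2.93-fold lower. Ofd1 was not called at 22.1 and 21.6 CPM against 17.2 and 14.6 CPM (log2 difference -0.46 ± 0.17, adjusted p = 0.0642).

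**Figure D4:**
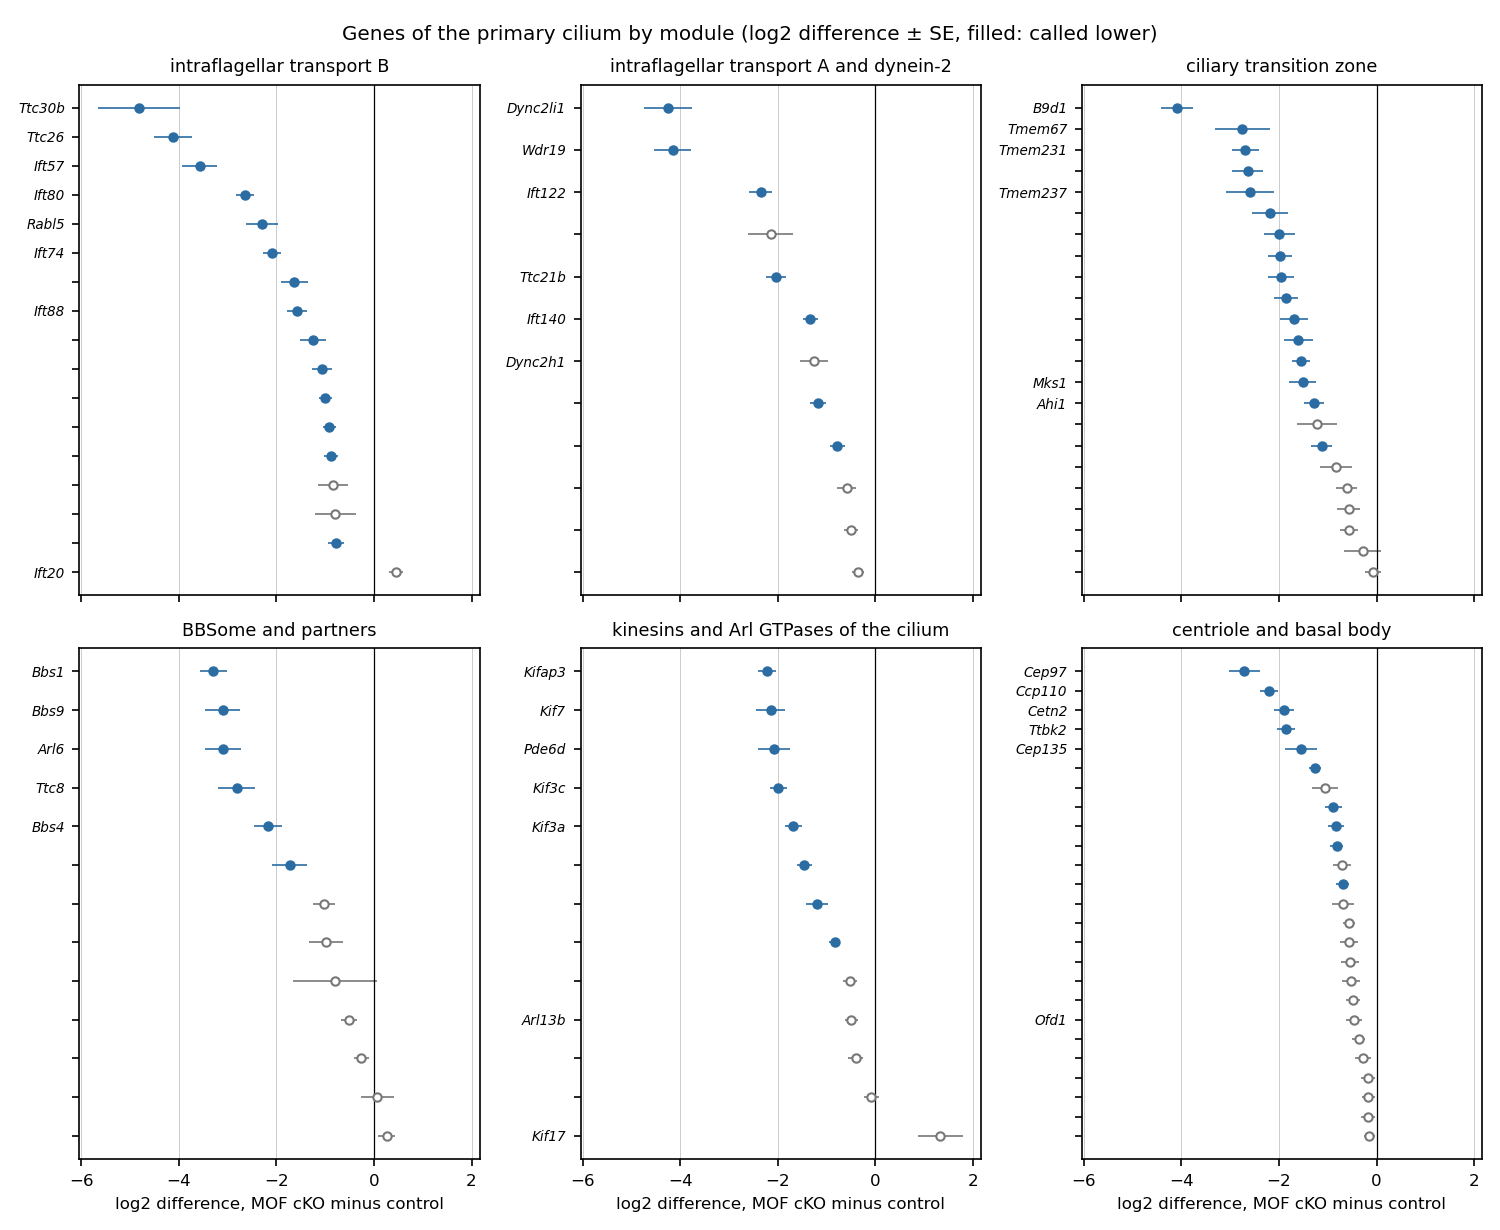
Log2 difference with its SE for every tested member of the 6 ciliary lists, with the names of those described in the text, MOF cKO minus control, with filled blue points for genes called lower and open points for genes not called. Ttc30b, Dync2li1, Wdr19, Ttc26 and B9d1 lie furthest left, and the 4 points right of 0, of which Kif17 lies furthest, were not called.

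RFX factors bind the X-box, an inverted repeat, and are known regulators of ciliary genes. Of 7 tested genes for RFX factors and their partners 1 was lower and 1 higher, 14.3% each beside 9.59% and 10% over all genes. Rfxank, a partner of RFX5 in MHC class II regulation, had 23 and 21.7 against 10.9 and 11.9 CPM, 1.95-fold lower. Rfx1 had 33 and 39 against 53.5 and 59.1 CPM, 1.56-fold higher, a call not kept under library totals. Rfx2 (log2 -0.08 ± 0.16) and Rfx3 (log2 -0.32 ± 0.23), both regulators of ciliary genes, were not called. The motif was searched on both strands of each RefSeq promoter, from 250 bases before to 50 bases after the start, as GTT, any base, CC, any 2 bases, GG, any base, AAC. It was found in 148 of all 32851 promoters of the table (0.451%), in 56 of the 10966 promoters of tested genes (0.511%), in 14 of 1087 promoters of genes called lower (1.29%) and in 1 of 1083 of genes called higher (0.0923%). The ciliary lists held it in 5 of their 92 promoters (5.43%), with a like share in members called lower (3 of 53, 5.66%) and in members not called (2 of 39, 5.13%). The 56 genes with the motif had a median log2 difference of -0.58, beside -0.02 for all genes, and 25% of them were called lower. The shorter RFX site GTTGCCAT, whose letters can overlap a full match, was held by 105 promoters of tested genes, of which 13.3% were of genes called lower. The table covers 78.6% of the tested genes. Counts over genes used a single promoter per gene, that of the most upstream start in the table, whereas the 32851 promoters include every start. A match describes the letters only and is no evidence of binding.

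The promoters of 4 genes called lower are printed because they hold the motif near the start, Ttc26, Mks1 and Ahi1 from the ciliary lists and Morn4 from the 12 largest falls. They are RefSeq sequences of build GRCm38.p6, read 5′ to 3′ on the strand of the gene, and capitals mark the match. The positions are chr6:38381274-38381573 on the plus strand for Ttc26, chr19:42086321-42086620 on the minus strand for Morn4, chr11:87852965-87853264 on the plus strand for Mks1 and chr10:20952297-20952596 on the plus strand for Ahi1.
Ttc26: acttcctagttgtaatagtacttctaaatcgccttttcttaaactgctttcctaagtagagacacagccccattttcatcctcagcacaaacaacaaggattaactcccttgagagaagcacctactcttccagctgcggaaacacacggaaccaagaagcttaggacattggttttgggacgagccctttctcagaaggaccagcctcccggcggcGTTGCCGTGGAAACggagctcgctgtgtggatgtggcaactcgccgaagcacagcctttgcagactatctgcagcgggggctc
Morn4: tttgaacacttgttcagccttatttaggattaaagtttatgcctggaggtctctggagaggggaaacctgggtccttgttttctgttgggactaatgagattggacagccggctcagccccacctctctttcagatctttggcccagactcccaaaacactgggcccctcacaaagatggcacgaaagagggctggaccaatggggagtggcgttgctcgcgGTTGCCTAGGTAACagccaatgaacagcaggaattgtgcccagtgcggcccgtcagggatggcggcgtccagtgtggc
Mks1: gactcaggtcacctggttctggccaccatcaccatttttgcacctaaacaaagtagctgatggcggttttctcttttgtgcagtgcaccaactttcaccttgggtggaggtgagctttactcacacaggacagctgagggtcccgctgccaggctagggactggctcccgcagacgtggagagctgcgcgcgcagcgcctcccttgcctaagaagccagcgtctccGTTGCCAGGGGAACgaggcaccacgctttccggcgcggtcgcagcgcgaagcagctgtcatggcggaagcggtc
Ahi1: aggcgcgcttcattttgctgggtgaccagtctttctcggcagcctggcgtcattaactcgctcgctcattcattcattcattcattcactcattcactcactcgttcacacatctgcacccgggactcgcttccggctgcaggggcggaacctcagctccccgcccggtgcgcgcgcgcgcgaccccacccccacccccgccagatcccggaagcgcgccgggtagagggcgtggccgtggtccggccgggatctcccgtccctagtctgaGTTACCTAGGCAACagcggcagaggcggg
The match begins at position -33 from the start in Ttc26, -28 in Morn4, -24 in Mks1 and 22 in Ahi1. The log2 differences of these genes were -4.12, -4.15, -1.51 and -1.28, and Ahi1, a gene of the transition zone, had 17 and 17.9 against 7.93 and 6.39 CPM, 2.44-fold lower.

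Hedgehog genes include the ligand of the hair placode, its receptors and the feedback inhibitors that report signalling. Of 17 tested, 6 were called lower and none higher. Shh went from 43.5 and 81 CPM to 9.94 and 10.8 CPM, a 6.01-fold fall (log2 difference -2.59 ± 0.29, adjusted p = 8.88e-04). Hhip, a secreted inhibitor and target, was low throughout at 2.74 and 4.44 against 0.602 and 0.212 CPM, 8.87-fold lower. Ptch1, receptor and target, went from 384 and 454 CPM to 211 and 222 CPM, a 1.93-fold fall (log2 difference -0.95 ± 0.12, adjusted p = 0.00123). Disp1, which releases the ligand, went from 87.3 and 87.2 CPM to 43.2 and 43.8 CPM, a 2.01-fold fall (log2 difference -1.0 ± 0.11, adjusted p = 8.55e-04). Intu, a planar polarity effector needed for cilia, went from 15.5 and 8.48 CPM to 3.76 and 2.46 CPM, a 3.86-fold fall (log2 difference -1.95 ± 0.38, adjusted p = 0.00709). Smo, the transducer in the cilium, had 172 and 188 CPM against 181 and 183 CPM (log2 difference 0.02 ± 0.10, adjusted p = 0.916).

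The regulators of hair placode and germ had 7 of 22 members lower and none higher. Lhx2, a transcription factor of early hair progenitors, went from 91.4 and 172 CPM to 9.04 and 19.9 CPM, a 9.05-fold fall (log2 difference -3.18 ± 0.41, adjusted p = 0.00149). Tbx1 and Nfatc1 are known from the later stem cell compartment. Tbx1 went from 11.5 and 22.9 CPM to 2.86 and 2.58 CPM, a 6.31-fold fall (log2 difference -2.66 ± 0.37, adjusted p = 0.00183). Nfatc1 went from 54.2 and 95.7 CPM to 9.84 and 17.1 CPM, a 5.54-fold fall (log2 difference -2.47 ± 0.33, adjusted p = 0.00168). Edar, the ectodysplasin receptor, went from 158 and 218 CPM to 90.5 and 74.2 CPM, a 2.28-fold fall (log2 difference -1.19 ± 0.18, adjusted p = 0.00236). Cux1 had 65.9 and 92 against 25.9 and 23.7 CPM, 3.18-fold lower. Prdm1 had 12.4 and 18.6 against 4.47 and 6.69 CPM, 2.76-fold lower. Wnt10b (log2 -0.06 ± 0.11), Lef1 (log2 -0.40 ± 0.11), Sox9 (log2 0.16 ± 0.20) and Sostdc1 (log2 0.30 ± 0.14) were not called. Among 35 tested Wnt ligands, receptors and inhibitors 4 were lower, beside 9.59% over all genes, and 3 of them were the receptors of R-spondins. Lgr5 went from 17.8 and 24.2 CPM to 4.92 and 4.53 CPM, a 4.44-fold fall (log2 difference -2.15 ± 0.23, adjusted p = 7.88e-04). Lgr4 went from 163 and 154 CPM to 102 and 86.1 CPM, a 1.69-fold fall (log2 difference -0.76 ± 0.12, adjusted p = 0.0031). Lgr6 went from 87.9 and 101 CPM to 63 and 62.1 CPM, a 1.51-fold fall (log2 difference -0.59 ± 0.12, adjusted p = 0.00791). Wif1, a secreted inhibitor, went from 27.1 and 31.9 CPM to 9.94 and 16.2 CPM, a 2.25-fold fall (log2 difference -1.17 ± 0.24, adjusted p = 0.00883), and Axin2, a common target of the pathway, had 105 and 103 CPM against 121 and 112 CPM (log2 difference 0.17 ± 0.11, adjusted p = 0.245).

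Of 20 tested genes of the BMP and TGF-beta list 3 were called lower, 4 higher and 13 neither. The shares were 15% lower and 20% higher, beside 9.59% and 10% over all genes. The 3 called lower were ligand genes. Tgfb2, made by early hair germs, went from 54.8 and 80.2 CPM to 4.22 and 11 CPM, an 8.77-fold fall (log2 difference -3.13 ± 0.40, adjusted p = 0.00139). Tgfb3 went from 72.8 and 101 CPM to 13 and 22.4 CPM, a 4.87-fold fall (log2 difference -2.29 ± 0.27, adjusted p = 0.00106). Bmp4 went from 7.47 and 13.6 CPM to 1.31 and 2.08 CPM, a 6.18-fold fall (log2 difference -2.63 ± 0.42, adjusted p = 0.00317). The 4 called higher were targets, a transducer and an antagonist, of which 2 were kept under library totals. Id1, a target of BMP signalling, had 14.5 and 17 against 29.4 and 37.5 CPM, 2.12-fold higher. Id2, another target, had 7.08 and 7.98 against 18.3 and 18.3 CPM, 2.43-fold higher. Fst, encoding the activin antagonist follistatin, had 156 and 162 against 325 and 360.1 CPM, 2.15-fold higher. Smad1, a transducer of BMP signals, had 42.4 and 41.3 against 64.1 and 67.2 CPM, 1.57-fold higher.

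Notch signalling passes between neighbouring cells and promotes the suprabasal fate. Of 15 tested genes 4 were called higher and none lower (3 higher under library totals). Notch1, a receptor of all epidermal layers, went from 656 and 675 CPM to 1344 and 1296 CPM, a 1.98-fold rise (log2 difference 0.99 ± 0.10, adjusted p = 6.49e-04). Notch3, a receptor of suprabasal cells, went from 76.3 and 68.3 CPM to 248.9 and 226 CPM, a 3.29-fold rise (log2 difference 1.72 ± 0.11, adjusted p = 2.53e-04). The ligand gene Jag1 went from 122 and 108 CPM to 245 and 271 CPM, a 2.25-fold rise (log2 difference 1.17 ± 0.12, adjusted p = 6.77e-04) and the target gene Hes1 had 34.5 and 35.8 against 59.6 and 57.5 CPM, 1.66-fold higher. Notch3 is also a marker of pericytes, and pericyte and muscle markers as a list summed to 176.7 and 232.5 CPM against 317.6 and 324.5 CPM. Without Notch3 the other members of that list summed to 100.4 and 164.3 CPM against 68.7 and 98.3 CPM.

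In the EGF receptor family and its ligands all 11 tested genes were above the controls in both MOF cKO libraries. Over all 13956 genes tested, 4867 were above in the same way. In this list 7 genes were called, with a median log2 difference of 1.45 (4 called under library totals). Among the ligands, Nrg1, encoding neuregulin 1, went from 0.359 and 0.361 CPM to 5.02 and 6.35 CPM, a 15.6-fold rise (log2 difference 3.96 ± 0.48, adjusted p = 0.00114). Epgn, encoding epigen, went from 12 and 7.87 CPM to 45.4 and 52.4 CPM, a 4.92-fold rise (log2 difference 2.3 ± 0.22, adjusted p = 6.06e-04). Areg, encoding amphiregulin, went from 1.34 and 0.866 CPM to 4.07 and 6.61 CPM, a 4.82-fold rise (log2 difference 2.27 ± 0.48, adjusted p = 0.00919). Hbegf, released in wound healing, went from 15.1 and 16.2 CPM to 42.1 and 60.7 CPM, a 3.29-fold rise (log2 difference 1.72 ± 0.20, adjusted p = 9.40e-04). Tgfa, a ligand of the same receptor, went from 13.8 and 13.1 CPM to 33.2 and 43.4 CPM, a 2.85-fold rise (log2 difference 1.51 ± 0.18, adjusted p = 0.00101). The receptor gene Egfr went from 113 and 85.8 CPM to 175 and 168 CPM, a 1.72-fold rise (log2 difference 0.78 ± 0.14, adjusted p = 0.00556).

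Cytosolic ribosomal proteins showed the most uniform change. Of 78 tested genes, 74 were called higher, all 78 had a log2 difference above 0 (0.58 to 1.4), and the median was 0.98, beside -0.02 over all genes and a background of 10% higher. Under library totals 58 were still called, with a median of 0.68. Their summed level was 80980 and 74610 CPM in the controls and 165000 and 144300 CPM in MOF cKO. As shares of the counts on genes, which again rest on library totals, they took 9.01% and 8.28% of the control libraries. In the MOF cKO libraries they took 14.6% and 13.2%. Rpl12 went from 1229 and 1101 CPM to 3293 and 2870.0 CPM, a 2.65-fold rise (log2 difference 1.4 ± 0.12, adjusted p = 4.35e-04). Rpl13a went from 1415 and 1312 CPM to 3504 and 3188 CPM, a 2.46-fold rise (log2 difference 1.3 ± 0.10, adjusted p = 4.02e-04). Rpl38 went from 213 and 173 CPM to 485 and 444 CPM, a 2.41-fold rise (log2 difference 1.27 ± 0.13, adjusted p = 7.25e-04). Rps19 had 979 and 933 against 2347 and 2174 CPM, 2.37-fold higher. Rplp1 had 1303 and 1209 against 3082 and 2708 CPM, 2.31-fold higher. Many ribosomal protein genes have processed copies elsewhere in the genome, where reads could be lost or shared.

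Translation factors followed in part, with 20 of 42 higher and none lower, of which 6 were called under library totals. Eef1b2 and Eef1g encode subunits of the same elongation factor. Eef1b2 went from 959 and 867 CPM to 2106 and 1846 CPM, a 2.16-fold rise (log2 difference 1.11 ± 0.11, adjusted p = 7.11e-04). Eef1g went from 1434 and 1259.6 CPM to 3036 and 2754 CPM, a 2.15-fold rise (log2 difference 1.1 ± 0.11, adjusted p = 7.11e-04). Eif6, which keeps the large subunit apart from the small, had 115 and 107 against 217 and 238 CPM, 2.04-fold higher. Eif5a had 840.4 and 784 against 1651 and 1603 CPM, 2.0-fold higher. Eif4ebp1, a brake on cap-dependent initiation, had 18.4 and 19.7 against 43.2 and 33.3 CPM, 2.01-fold higher. Among the 36 tested genes of the core spliceosome 6 were higher and 1 lower (2 higher and 4 lower under library totals). The shares were 16.7% higher and 2.78% lower, beside 10% and 9.59% over all genes. Prpf3 went from 47.2 and 42.1 CPM to 109.7 and 154 CPM, a 2.95-fold rise (log2 difference 1.56 ± 0.17, adjusted p = 8.84e-04). Snrnp200, a helicase of the spliceosome, went from 254 and 228 CPM to 529 and 511 CPM, a 2.16-fold rise (log2 difference 1.11 ± 0.11, adjusted p = 6.32e-04), and Prpf6 went the other way with 76.7 and 72.3 against 44.1 and 52.6 CPM, 1.54-fold lower. The proteasome had 4 of 33 higher, 12.1% beside 10% over all genes, and 1 higher and 1 lower under library totals. Psma3, of its core ring, had 135 and 135 against 255 and 259 CPM, 1.9-fold higher. Psma7 had 142 and 137 against 264 and 242 CPM, 1.81-fold higher.

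Genes for mitochondrial proteins did not move as a body. The respiratory chain has 5 complexes in the inner membrane, and of the subunits of complexes II to V 13 of 39 were called higher and none lower, but under library totals none was higher and 1 was lower. Uqcr11 went from 91.8 and 80.00 CPM to 155 and 157 CPM, a 1.82-fold rise (log2 difference 0.86 ± 0.11, adjusted p = 0.00155). Uqcrfs1 had 73.9 and 74.4 against 127 and 138 CPM, 1.79-fold higher. Uqcrq, a small subunit of complex III, had 66.2 and 60.4 against 118 and 103 CPM, 1.75-fold higher. Atp5g3 had 309 and 282 against 484 and 507 CPM, 1.68-fold higher. Cox7c had 129.5 and 129 against 225 and 209 CPM, 1.68-fold higher, while Uqcrc1 (log2 -0.05 ± 0.11) and Sdha (log2 -0.16 ± 0.12) were not called. In complex I 2 of 35 were higher (5.71%, beside 10% over all genes), and 5 were lower and 1 higher under library totals. Ndufab1, an acyl carrier protein, had 20.1 and 17.7 against 44.2 and 38 CPM, 2.17-fold higher. Ndufb10 had 68.9 and 68 against 109 and 101 CPM, 1.54-fold higher.

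The assembly factors that insert cofactors into these complexes had 5 of 41 lower and 1 higher (13 lower and 1 higher under library totals). The share lower was 12.2%, beside 9.59% over all genes. Nubpl, which delivers iron-sulfur clusters to complex I, went from 8.9 and 8.48 CPM to 2.51 and 1.1 CPM, a 4.85-fold fall (log2 difference -2.28 ± 0.43, adjusted p = 0.00605). Ndufaf7 went from 10.5 and 14.8 CPM to 4.07 and 3.13 CPM, a 3.52-fold fall (log2 difference -1.81 ± 0.29, adjusted p = 0.0034). Cox15, needed to make heme a, went from 31.6 and 28.8 CPM to 10.7 and 11.8 CPM, a 2.68-fold fall (log2 difference -1.42 ± 0.16, adjusted p = 9.12e-04). Coa3 had 27.2 and 35.4 against 16.1 and 16.3 CPM, 1.93-fold lower. Ecsit had 24.8 and 23.1 against 13.4 and 12.6 CPM, 1.84-fold lower. Sco2, a copper chaperone and known p53 target, was the only one called higher and went from 1.73 and 1.77 CPM to 7.73 and 9.23 CPM, a 4.84-fold rise (log2 difference 2.28 ± 0.32, adjusted p = 0.00204). Of 17 tested mitochondrial aminoacyl-tRNA synthetases 5 were lower and none higher, among them Tars2 (2.34-fold lower), Aars2 (2.02-fold lower), Sars2 (1.89-fold lower) and Vars2 (1.68-fold lower). Mitochondrial DNA maintenance and expression had 4 of 27 lower, 14.8% beside 9.59% over all genes. Among them was the RNA polymerase gene Polrmt (62.5 and 67.3 against 40.3 and 38.4 CPM, 1.65-fold lower). Tfam, which packages that DNA, was not called, with 39.8 and 37.4 CPM against 44 and 41.5 CPM (log2 difference 0.15 ± 0.12, adjusted p = 0.372). The mitochondrial ribosomal proteins had 3 of 78 lower and 8 higher (21 lower and 2 higher under library totals). The shares were 3.85% lower and 10.3% higher, beside 9.59% and 10% over all genes. Mrpl35 and Mrps18b had the largest fall and the largest rise of the calls. Mrpl35 had 21.5 and 18.9 against 8.94 and 9.4 CPM, 2.2-fold lower. Mrps18b had 24.7 and 24.6 against 59.6 and 64.5 CPM, 2.52-fold higher.

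Import of proteins into the organelle leaned upward, with 16 of 33 higher and 2 lower, a count that fell to 4 higher and 4 lower under library totals. Chchd4, which folds intermembrane proteins, went from 16.7 and 15.8 CPM to 46 and 40.1 CPM, a 2.65-fold rise (log2 difference 1.41 ± 0.15, adjusted p = 7.39e-04). Hspa9, the matrix chaperone that pulls proteins in, went from 428 and 394 CPM to 782 and 767 CPM, a 1.89-fold rise (log2 difference 0.91 ± 0.10, adjusted p = 8.67e-04). Hspe1, a chaperonin gene, had 179 and 171 against 381 and 353 CPM, 2.1-fold higher. Tomm40, the outer pore, had 106 and 105 against 199 and 214 CPM, 1.96-fold higher. Mtx1, of the outer membrane, had 38.9 and 36.6 against 23.3 and 22.5 CPM, 1.65-fold lower. Pmpcb, a processing peptidase gene, had 57.6 and 48.2 against 31.4 and 33.7 CPM, 1.63-fold lower. In fatty acid oxidation and peroxisomes 10 of 28 were lower and 2 higher. Acox3, a peroxisomal oxidase gene, went from 14.3 and 13.9 CPM to 1.96 and 2.03 CPM, a 7.04-fold fall (log2 difference -2.81 ± 0.26, adjusted p = 5.50e-04). Decr1, a mitochondrial reductase gene, went from 8.02 and 6.43 CPM to 1.71 and 2.12 CPM, a 3.76-fold fall (log2 difference -1.91 ± 0.35, adjusted p = 0.00526). Acad10 went from 8.87 and 7.65 CPM to 1.96 and 2.84 CPM, a 3.43-fold fall (log2 difference -1.78 ± 0.33, adjusted p = 0.00607). Scp2 had 90.3 and 81.3 against 35.9 and 35.4 CPM, 2.41-fold lower. Hsd17b4 had 68 and 71.6 against 27.6 and 29 CPM, 2.47-fold lower. Members called in the other direction were Acadl and Cpt1a. Acadl, a dehydrogenase of long chains, had 15.2 and 17.7 against 36 and 34.5 CPM, 2.15-fold higher. Cpt1a, the gate of fatty acid entry, had 23.2 and 20.5 against 39.4 and 35.4 CPM, 1.71-fold higher, a call not kept under library totals. Sirt3, the main deacetylase of the matrix, went from 6.75 and 8.45 CPM to 1.36 and 1.36 CPM, a 5.59-fold fall (log2 difference -2.48 ± 0.35, adjusted p = 0.00203). In glycolysis 11 of 22 were higher and 1 lower (4 higher and 3 lower under library totals). Slc2a3, a high-affinity glucose transporter, went from 6.29 and 3.1 CPM to 24.2 and 22.9 CPM, a 4.99-fold rise (log2 difference 2.32 ± 0.32, adjusted p = 0.00181). Aldoa, encoding aldolase, went from 444 and 495 CPM to 1298 and 1206 CPM, a 2.67-fold rise (log2 difference 1.42 ± 0.11, adjusted p = 3.58e-04). Ldha had 482 and 570.5 against 996 and 1009 CPM, 1.91-fold higher. Pgam1 had 369.9 and 376 against 734 and 659 CPM, 1.87-fold higher. Slc2a1, encoding the transporter GLUT1, was not called (log2 0.09 ± 0.11). Isoforms of phosphofructokinase went apart. Pfkm had 28.1 and 27.7 against 10.3 and 10.2 CPM, 2.71-fold lower. Pfkp had 8.48 and 13.1 against 23.7 and 31.1 CPM, 2.54-fold higher.

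**Figure D5:**
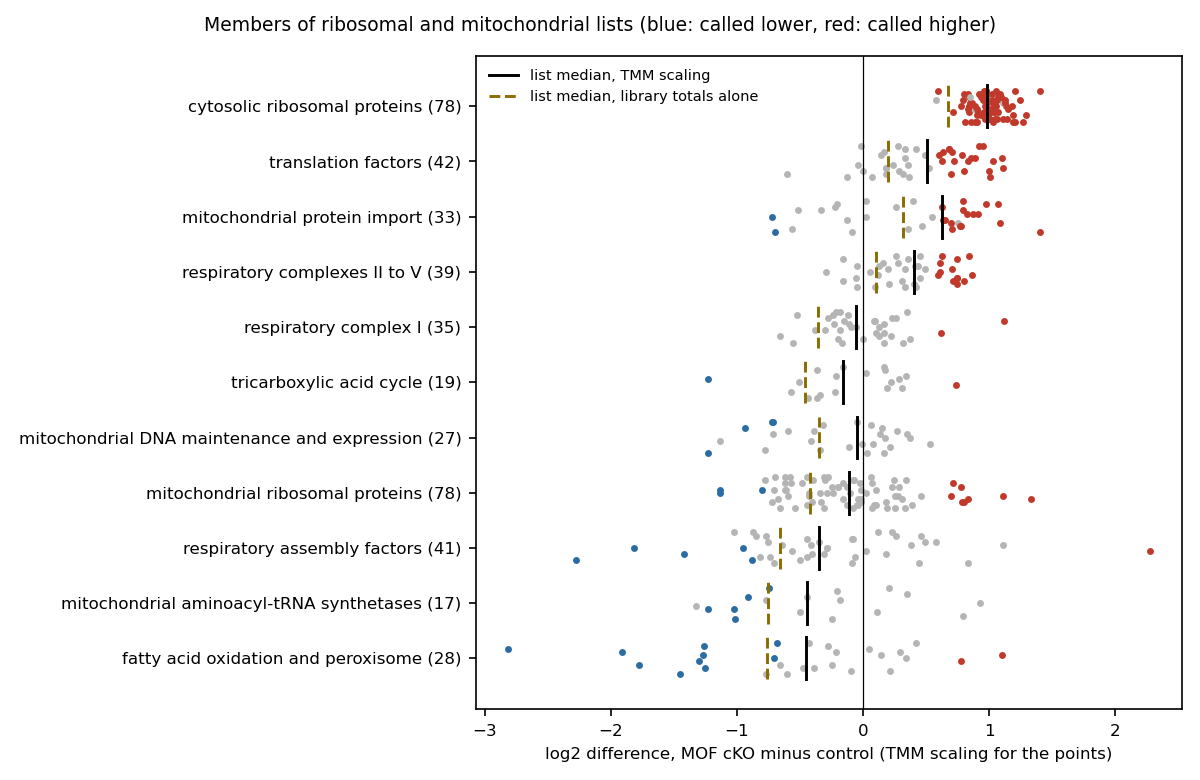
Each point is a tested member of a ribosomal or mitochondrial list, placed by its log2 difference, MOF cKO minus control, under TMM scaling, in blue when called lower, red when called higher and grey otherwise. Bars mark the list median, solid under TMM and dashed under library totals alone. The ribosomal median of 0.98 stayed above 0 under library totals at 0.68, whereas that of complexes II to V moved from 0.41 to 0.10 and complex I from -0.05 to -0.36.

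Genome maintenance genes leaned downward. In homologous recombination and Fanconi repair 15 of 42 were lower and none higher, with a median of -0.68. Xrcc2, a gene of strand exchange, went from 16.4 and 15.6 CPM to 3.26 and 3.01 CPM, a 5.11-fold fall (log2 difference -2.35 ± 0.23, adjusted p = 6.45e-04). Fancg went from 18.9 and 23.5 CPM to 5.67 and 3.26 CPM, a 4.77-fold fall (log2 difference -2.25 ± 0.29, adjusted p = 0.00146). Fanci, a Fanconi clamp subunit, went from 29.1 and 21.6 CPM to 7.53 and 5.63 CPM, a 3.86-fold fall (log2 difference -1.95 ± 0.24, adjusted p = 0.00114). Brca2, a tumour suppressor gene of this pathway, went from 38 and 33.1 CPM to 12.8 and 12.8 CPM, a 2.77-fold fall (log2 difference -1.47 ± 0.15, adjusted p = 7.63e-04). Brca1 (log2 -0.66 ± 0.15) and Atm (log2 -0.57 ± 0.19) were not called. In base, mismatch and nucleotide excision repair 12 of 44 were lower and 3 higher. Mlh3, a mismatch repair gene, went from 18.1 and 21.2 CPM to 4.57 and 4.74 CPM, a 4.21-fold fall (log2 difference -2.08 ± 0.21, adjusted p = 6.81e-04). Neil1, a DNA glycosylase gene, went from 6.1 and 7.0 CPM to 2.21 and 1.36 CPM, a 3.69-fold fall (log2 difference -1.88 ± 0.39, adjusted p = 0.0088). Ercc1, a nuclease subunit of excision repair, went from 20.4 and 22.7 CPM to 91 and 88.4 CPM, a 4.16-fold rise (log2 difference 2.06 ± 0.12, adjusted p = 1.75e-04). Ercc5, another nuclease of that pathway, had 47.5 and 37.8 against 74.3 and 81.9 CPM, 1.83-fold higher. Gtf2h1, of the factor TFIIH, had 54.2 and 55.3 against 87.5 and 95.3 CPM, 1.67-fold higher. Under library totals only Ercc1 of these 3 was called. DNA replication had 7 of 44 lower, 15.9% beside 9.59% over all genes. Prim2, a primase subunit, had 35.3 and 35.7 against 15 and 18 CPM, 2.15-fold lower. Gins2, of the replicative helicase, had 32.5 and 36.2 against 15.8 and 17.9 CPM, 2.04-fold lower. Mcm2 (log2 -0.49 ± 0.11) and Pcna (log2 0.22 ± 0.10) were not called. In G2 and mitosis 7 of 40 were lower, 17.5% beside 9.59% over all genes. Spc24, a kinetochore gene, had 55.3 and 53.1 against 20.9 and 25.1 CPM, 2.36-fold lower. Cdc25c, a phosphatase that starts mitosis, had 35.3 and 34.2 against 16.6 and 18.8 CPM, 1.96-fold lower. The cycle markers Mki67 (log2 -0.62 ± 0.19), Top2a (log2 -0.36 ± 0.13), Cdk1 (log2 0.18 ± 0.14) and Ccnb1 (log2 -0.02 ± 0.11) were not called.

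Targets of p53, which halts the cell cycle or kills the cell after damage, had 22 of 35 higher and 1 lower, beside 10% higher over all genes (20 higher and 3 lower under library totals). Eda2r, a receptor of the ectodysplasin A2 form, went from 1.57 and 1.08 CPM to 26.3 and 35.1 CPM, a 23-fold rise (log2 difference 4.52 ± 0.27, adjusted p = 1.76e-04). Ccng1, encoding cyclin G1, went from 42.5 and 39.9 CPM to 280.0 and 315 CPM, a 7.22-fold rise (log2 difference 2.85 ± 0.12, adjusted p = 5.82e-05). Trp53inp1 went from 36.9 and 35.3 CPM to 208 and 248 CPM, a 6.33-fold rise (log2 difference 2.66 ± 0.13, adjusted p = 9.10e-05). Fas, a death receptor gene, went from 1.66 and 1.73 CPM to 7.68 and 12.4 CPM, a 5.92-fold rise (log2 difference 2.57 ± 0.36, adjusted p = 0.0019). Mdm2, which feeds back on p53, went from 55.1 and 54.3 CPM to 156 and 177 CPM, a 3.05-fold rise (log2 difference 1.61 ± 0.11, adjusted p = 2.91e-04). Bax had 45.1 and 53.4 against 119 and 119 CPM, 2.42-fold higher. Ddb2, a damage sensor, went against the list with 24.3 and 23.1 against 9.39 and 13.8 CPM, 2.04-fold lower. Of 22 tested G1 cyclins, cyclin-dependent kinases and inhibitors 2 were lower and 2 higher, with a median log2 difference of -0.04. The shares were 9.09% each, beside 9.59% lower and 10% higher over all genes. Cyclin-dependent kinase inhibitors hold cells before DNA synthesis. Cdkn1a went from 88.4 and 126 CPM to 438 and 611 CPM, a 4.89-fold rise (log2 difference 2.29 ± 0.22, adjusted p = 6.02e-04). Cdkn2b went from 0.163 and 0.542 CPM to 8.58 and 5.67 CPM, a 20.2-fold rise (log2 difference 4.34 ± 0.61, adjusted p = 0.00193). Rbl2, a retinoblastoma relative, fell (43.9 and 36.3 against 14.4 and 14.4 CPM, 2.78-fold lower). Among 23 tested cell death regulators 3 were lower and 4 higher (5 and 2 under library totals). The shares were 13% lower and 17.4% higher, beside 9.59% and 10% over all genes. Bcl2 (2.56-fold lower), Bcl2l2 (2.52-fold lower) and Bak1 (2.61-fold lower) fell. Casp1 (9.54-fold higher), Bid (2.55-fold higher) and Birc3 (2.01-fold higher) rose, besides Gsdmc above.

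Stress pathways were touched to different degrees. In the integrated stress response, which raises ATF4 when translation initiation is restrained, 6 of 18 were higher and none lower (3 higher and 1 lower under library totals). Slc7a11, the cystine importer, went from 1.76 and 0.903 CPM to 34.1 and 20.03 CPM, a 20.1-fold rise (log2 difference 4.33 ± 0.39, adjusted p = 5.42e-04). Nupr1, a stress-induced chromatin protein gene, went from 1.7 and 1.59 CPM to 10.1 and 7.92 CPM, a 5.48-fold rise (log2 difference 2.45 ± 0.33, adjusted p = 0.00166). Sesn2, encoding sestrin 2, went from 26.9 and 26.8 CPM to 98.8 and 132 CPM, a 4.3-fold rise (log2 difference 2.1 ± 0.16, adjusted p = 3.55e-04). Atf4 itself had 275 and 291 against 457 and 504 CPM, 1.7-fold higher. Asns had 40.4 and 34.8 against 63.9 and 64.1 CPM, 1.7-fold higher, while Ddit3 (log2 0.62 ± 0.22) and Atf3 (log2 -0.18 ± 0.19) were not called. Among NRF2 and antioxidant genes 7 of 21 were higher and 2 lower (6 higher and 3 lower under library totals). Srxn1, encoding sulfiredoxin, went from 1.34 and 1.88 CPM to 14.2 and 10.8 CPM, a 7.78-fold rise (log2 difference 2.96 ± 0.32, adjusted p = 8.49e-04). Gpx2, a glutathione peroxidase gene, went from 0.489 and 0.397 CPM to 5.17 and 3.13 CPM, a 9.25-fold rise (log2 difference 3.21 ± 0.56, adjusted p = 0.00451). Hmox1, encoding heme oxygenase, went from 4.79 and 5.67 CPM to 21.3 and 24 CPM, a 4.33-fold rise (log2 difference 2.11 ± 0.20, adjusted p = 5.98e-04). Nfe2l2, the factor itself, had 41.6 and 39.7 against 93.2 and 84.5 CPM, 2.19-fold higher. Gstm1, a glutathione transferase gene, fell and had 37 and 53.7 against 14.6 and 22.4 CPM, 2.44-fold lower. Nqo1, a common NRF2 target, was not called (log2 0.71 ± 0.40). In the unfolded protein and heat shock list 2 of 15 were higher and 1 lower (1 and 1 under library totals). The shares were 13.3% higher and 6.67% lower, beside 10% and 9.59% over all genes. Hspb1, a small heat shock gene, had 59.7 and 50.1 against 209.6 and 132 CPM, 3.11-fold higher. Sdf2l1, of the endoplasmic reticulum, had 18.1 and 23.9 against 8.28 and 8.77 CPM, 2.46-fold lower. Hspa5, its main chaperone gene, was not called (log2 0.22 ± 0.19).

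Immediate early factors moved in both directions. Of 18 tested, 3 were lower and 3 higher, 16.7% each beside 9.59% and 10% over all genes. Nr4a1, an orphan nuclear receptor gene, went from 426 and 629.6 CPM to 104 and 152 CPM, a 4.13-fold fall (log2 difference -2.05 ± 0.23, adjusted p = 9.65e-04). Egr2, a zinc finger factor, went from 161 and 207 CPM to 50.4 and 73.4 CPM, a 2.97-fold fall (log2 difference -1.57 ± 0.20, adjusted p = 0.00139). Egr3 went from 24.3 and 43.9 CPM to 9.04 and 10.6 CPM, a 3.47-fold fall (log2 difference -1.79 ± 0.29, adjusted p = 0.00314). Myc, a driver of growth, went from 38.9 and 33 CPM to 80.1 and 79.8 CPM, a 2.22-fold rise (log2 difference 1.15 ± 0.13, adjusted p = 8.67e-04). Egr1 had 2422 and 3027 against 4417 and 4090.2 CPM, 1.56-fold higher. Fos had 1106 and 1372 against 1965 and 1815 CPM, 1.52-fold higher. Of these 3 rises only that of Myc was called under library totals. Jun (log2 -0.03 ± 0.15) and Junb (log2 0.14 ± 0.15) were not called.

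Matrix proteases cut the dermal and basement membrane matrix and rise in wounds. Of 24 tested genes with their inhibitors 9 were higher and 2 lower, the same counts as under library totals. Mmp9, encoding gelatinase B, went from 2.35 and 2.35 CPM to 105 and 139.8 CPM, a 52.1-fold rise (log2 difference 5.7 ± 0.20, adjusted p = 4.16e-05). Mmp3, encoding stromelysin 1, had 1 and 1 counts against 194 and 639, a ratio of 558 (95% counting interval 154 to 4616, adjusted p = 5.39e-04) for MOF cKO over control. Mmp13, a collagenase gene, had 0 and 2 counts against 118 and 99, a ratio of 145 (95% counting interval 39.8 to 1208, adjusted p = 0.00127) in the same terms. Mmp12 was without a count in the controls, with 0 and 0 counts against 241 and 96, at least 78.4-fold higher (adjusted p = 0.00146), and Mmp10 had 0 and 0 counts against 96 and 36, at least 30.8-fold higher (adjusted p = 0.00395), where the bounds set 3 counts per library in place of 0. Mmp12 is also known from macrophages, whose marker sums are given above, and their part in it was not tested. Adamts17 went from 107 and 117 CPM to 25.3 and 20.2 CPM, a 4.92-fold fall (log2 difference -2.3 ± 0.15, adjusted p = 2.23e-04). Adamts9 went from 29.97 and 40.6 CPM to 6.98 and 13.1 CPM, a 3.5-fold fall (log2 difference -1.81 ± 0.30, adjusted p = 0.00369), while Timp1 had 0.326 and 0.686 CPM against 0.552 and 1.61 CPM (log2 difference 1.1 ± 0.84, adjusted p = 0.333). Serpins, most of them protease inhibitors, had 8 of 20 higher and 1 lower (7 and 2 under library totals). Serpinb3a went from 0.391 and 0.289 CPM to 51.6 and 34.9 CPM, a 124-fold rise (log2 difference 6.96 ± 0.32, adjusted p = 9.10e-05). Serpinb3b went from 5.02 and 3.36 CPM to 31.9 and 22.6 CPM, a 6.47-fold rise (log2 difference 2.69 ± 0.27, adjusted p = 7.02e-04). Serpine2, encoding protease nexin 1, went from 27.1 and 27.3 CPM to 227 and 267 CPM, a 9.07-fold rise (log2 difference 3.18 ± 0.13, adjusted p = 5.82e-05). Serpina3n had 0 and 0 counts against 65 and 108, at least 38-fold higher (adjusted p = 0.00133). The Serpinb3 genes are close copies, and their reads could be shared.

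Chemokines, cytokines and the IL-1 family had 11 of 26 higher and 1 lower, with a median log2 difference of 2.67 (9 and 1 under library totals). Besides Tslp, Il24, a cytokine of the IL-20 group, rose from the limit of detection, with 2 and 1 counts against 171 and 231, a ratio of 179.6 (95% counting interval 61 to 874, adjusted p = 2.83e-04) for MOF cKO over control. Ccl20, which keratinocytes make in inflammation, went from 0.978 and 1.08 CPM to 11.9 and 22.4 CPM, a 16.6-fold rise (log2 difference 4.06 ± 0.38, adjusted p = 6.05e-04). Ccl2, a monocyte attractant, went from 0.554 and 0.578 CPM to 8.48 and 6.78 CPM, a 13.4-fold rise (log2 difference 3.74 ± 0.40, adjusted p = 7.99e-04). Il1b had 0.163 and 0.289 against 3.36 and 2.54 CPM, 12.9-fold higher. Il1a had 2 and 0 counts against 36 and 40, a ratio of 50.9 (95% counting interval 13.6 to 428, adjusted p = 0.00719), while Cxcl1 had 27.3 and 72.3 CPM against 96.4 and 114 CPM (log2 difference 1.08 ± 0.38, adjusted p = 0.0593). Cxcl14, a chemokine of resting epidermis, went from 855 and 757 CPM to 438 and 404 CPM, a 1.91-fold fall (log2 difference -0.94 ± 0.11, adjusted p = 0.00106). Among antimicrobial genes 5 of 14 were higher and none lower, also under library totals. Pglyrp3, a peptidoglycan recognition gene, went from 0.13 and 0.469 CPM to 11 and 7.03 CPM, a 30.1-fold rise (log2 difference 4.91 ± 0.59, adjusted p = 0.00114). S100a9, a calprotectin subunit, went from 1.01 and 0.866 CPM to 9.94 and 9.61 CPM, a 10.3-fold rise (log2 difference 3.37 ± 0.33, adjusted p = 6.78e-04), and Stfa1, of the stefin cluster with many close copies, had 141 and 117 against 374 and 339 CPM, 2.77-fold higher. Saa3 had 0 and 1 counts against 117 and 119, a ratio of 316 (95% counting interval 56.2 to 12540.0, adjusted p = 7.25e-04) for MOF cKO over control. S100a8 was not called at 0.0978 and 0.253 CPM against 2.11 and 2.08 CPM (log2 difference 3.55 ± 0.79, adjusted p = 0.0113), and Lcn2 had 0 and 0 counts against 12 and 13 (adjusted p = 0.0164). Granulocyte markers summed to 1.24 and 1.55 CPM against 13.8 and 14 CPM and macrophage markers rose as given above, and their part in these lists was not tested. The cells that held Il24, Ccl20 and Tslp, which neither marker list includes, were not identified.

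Interferon-stimulated genes had 5 of 31 higher, 16.1% beside 10% over all genes (4 higher and 1 lower under library totals). Ifi202b, an interferon-inducible DNA sensor family gene, went from 19.9 and 26.2 CPM to 188 and 163 CPM, a 7.62-fold rise (log2 difference 2.93 ± 0.17, adjusted p = 1.50e-04). Bst2, encoding tetherin, had 1.21 and 0.83 against 7.48 and 5.97 CPM, 6.56-fold higher. Isg15 had 0.457 and 0.433 against 2.66 and 3.26 CPM, 6.59-fold higher, while Irf7 (log2 1.72 ± 0.64) was not called. Usp18 and Rsad2 rose from 1 or 2 counts in the controls. Usp18 had 1 and 0 counts against 34 and 21, a ratio of 73.7 (95% counting interval 12.7 to 2963, adjusted p = 0.00819) for MOF cKO over control. Rsad2 had 2 and 0 counts against 85 and 31, a ratio of 77.7 (95% counting interval 21 to 649, adjusted p = 0.00641) in the same terms. In MHC presentation 3 of 15 were higher, also under library totals, 20% beside 10% over all genes. B2m, the light chain of class I, had 33.8 and 37.4 against 77.3 and 74.4 CPM, 2.13-fold higher. Tapbp, which loads class I, had 38.6 and 35.8 against 66.3 and 75.7 CPM, 1.91-fold higher. H2-Eb1, a class II gene of antigen-presenting cells, had 0.489 and 0.433 against 3.11 and 3.98 CPM, 7.62-fold higher. The class I genes H2-D1 (log2 -0.21 ± 0.17) and H2-K1 (log2 0.69 ± 0.20) were not called.

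Of 11 tested histone variants 4 were lower and 1 higher. H2afy2, which encodes macroH2A2, went from 71.4 and 86.4 CPM to 17.6 and 19.6 CPM, a 4.24-fold fall (log2 difference -2.09 ± 0.15, adjusted p = 2.85e-04), while H2afy, for macroH2A1, had 169.8 and 182 CPM against 133 and 136 CPM (log2 difference -0.38 ± 0.10, adjusted p = 0.0212). The linker histone gene H1fx went from 23.4 and 24.2 CPM to 11.3 and 10.6 CPM, a 2.18-fold fall (log2 difference -1.12 ± 0.16, adjusted p = 0.00222). H1f0, another linker histone gene, went from 484 and 473 CPM to 257 and 273 CPM, a 1.81-fold fall (log2 difference -0.85 ± 0.10, adjusted p = 0.00103). H2afv had 101 and 97.9 against 63.4 and 59.8 CPM, 1.62-fold lower. H2afj, a variant known from senescent cells, went from 29.3 and 27.7 CPM to 149 and 131 CPM, a 4.92-fold rise (log2 difference 2.3 ± 0.13, adjusted p = 1.27e-04). Of 12 tested genes for other histone acetyltransferases and of 10 for H3K4 methyltransferase complexes none was called, with median log2 differences of -0.10 and 0.03. Among 24 tested Hox genes, which give cells their position along the trunk, 4 were lower and none higher. The share lower was 16.7%, beside 9.59% over all genes. Hoxa7 went from 36.8 and 35.7 CPM to 6.07 and 3.35 CPM, a 7.75-fold fall (log2 difference -2.95 ± 0.27, adjusted p = 5.56e-04). Hoxb8 had 23.2 and 33.7 against 10.04 and 9.02 CPM, 2.99-fold lower. Hoxc8 had 26 and 35.6 against 12.1 and 14.1 CPM, 2.34-fold lower. Hoxa5 was 2.13-fold lower (log2 -1.09 ± 0.21). The imprinted genes, expressed from a single parental copy, had 5 of 19 higher and none lower (3 higher and 4 lower under library totals). Meg3, a long non-coding RNA, went from 6.59 and 16.1 CPM to 37.4 and 44.1 CPM, a 3.61-fold rise (log2 difference 1.85 ± 0.36, adjusted p = 0.00719). Dlk1, of the same cluster, went from 5.74 and 11.9 CPM to 24.7 and 27.5 CPM, a 2.97-fold rise (log2 difference 1.57 ± 0.32, adjusted p = 0.00791). Plagl1, a zinc finger factor, went from 50.2 and 35.7 CPM to 190.3 and 113 CPM, a 3.53-fold rise (log2 difference 1.82 ± 0.26, adjusted p = 0.00219). Mest, an imprinted hydrolase gene, went from 10.2 and 10.7 CPM to 35.2 and 32.9 CPM, a 3.26-fold rise (log2 difference 1.71 ± 0.15, adjusted p = 5.36e-04). Impact had 31.3 and 29.1 against 67.3 and 72.6 CPM, 2.31-fold higher. Meg3 and Dlk1 are also abundant in mesenchyme, and the part of the fibroblast markers, whose sums are given above, was not tested.

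By chromosome, the X held 432 tested genes, of which 12.5% were lower and 7.87% higher with a median log2 difference of -0.15, beside 9.83% lower, 10.2% higher and -0.02 for 12895 autosomal genes. Control 1 alone expressed Xist at a high level. Without control 1, 11% of 446 genes of the X were lower and 7.62% higher with a median of -0.13, beside 8.95%, 9.48% and -0.01 for 13359 autosomal genes. Calls also depended on the level of the gene. Over 100 CPM, 22.4% of 2104 genes were higher and 2.57% lower, while between 10 and 100 CPM 9.7% were higher and 13.4% lower. In promoters, the TATA box (TATAAA, searched on both strands) was held by 7.31% of those of all tested genes, by 12.6% of those of genes called higher and by 5.61% of those of genes called lower. The AP1 site (TGANTCA) was held by 4.92%, 8.22% and 3.68% of the same sets. The CCAAT box (CCAAT) was held by 38.7%, 33.9% and 45.8%.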

How the data were processed

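RNA-seq counts of 4 libraries of sorted E16.5 dorsal skin epithelium were used, 2 control and 2 MOF cKO, grouped by the labels. The deposited values are raw read counts per gene symbol, which the authors made from paired-end, poly(A)-selected, strand-marking libraries aligned to mm10 with HISAT2, per the study's methods, and counted with HTSeq. The submitters' processing notes name TopHat2 instead. Gene annotation and strand setting are not given in the sources used here, so that reads of overlapping or antisense genes cannot be told apart. Entries that name no gene (23.7% to 26% of each library) were left out of totals and tests. No column of another series was present.

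Genes with enough counts for filterByExpr (13956 of 23432 listed) were tested with the quasi-likelihood test of edgeR 4.0.16 in R 4.3.3, with TMM scaling and the genotype as the only term. The p-values were adjusted by Benjamini-Hochberg, and calls needed at most 0.01 together with a fold above 1.5, as in the study, whose own test was DESeq2. The script was tested on simulated data. Log2 differences carry a prior count of 0.125. SE was derived from the test, as the size of the log2 difference over the square root of the F statistic. Bounds set 3 counts per library in place of 0. Counting intervals are exact, at 95%, and cover counting error only. Alternatives were DESeq2 1.42.0, other scalings, filters, tests and thresholds, a replicate block and the omission of each library. The replicate numbers were not taken to pair the libraries, since the sources used here do not say that a number marks a litter.

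The named genes were MOF and its partners, the 12 largest rises and falls at 10 CPM or more, and, in each list described, its anchor genes, up to 5 of the called members with the largest differences in each direction, and members called against the direction of the list. Some genes that this rule takes in are not reported here. Members and lists were chosen with earlier results of these data known. Gene positions are those of GENCODE M21 (98.4% of symbols matched) and promoters those of RefSeq, both on GRCm38, the assembly of mm10. Promoters were held for 78.6% of tested genes, below the 80% set for a check of GC content, which was therefore void. Where a gene had several starts, only the most upstream was used in counts over genes.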

Additional observations from a re-analysis of the deposited data

How the results depend on the processing

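The number of genes called lower, 1338, was within 1.5 times under DESeq2 (1735), its size factors in edgeR (1269), upper-quartile scaling (1551), a minimum mean of 5 CPM (1195) and scaling without ribosomal protein genes, an alternative chosen after the data were seen (1322). It moved to 2743 with library totals alone, 2197 with every gene of at least 1 count, 2139 with the likelihood ratio test, 2296 at an adjusted p of 0.05 and 426 with glmTreat against a fold of 1.5. The number called higher, 1395, moved past 1.5 times to 769 with library totals alone and 502 with glmTreat, and was between 1213 and 1943 otherwise. With the replicate number as a block, 2263 genes were lower and 1903 higher, of which 1338 and 1394 were among the original calls. Of 15 fibroblast markers 8 were then higher and 1 lower, and of 8 Merkel cell markers 5 were lower, instead of none. The study's methods describe pairs of samples with littermate controls but do not say that the replicate numbers mark the pairs, and the deviations of same-numbered libraries had a correlation of 0.251 across genes. Leaving out each library in turn gave 1236 to 1332 genes lower and 1225 to 1399 higher, of which 1040 to 1077 and 1107 to 1189 were among the original calls. Each such fit has 1 library in a group, which is assumed to vary like the other group. Kat8 was not called under any alternative run, with log2 differences from -0.45 (library totals) to -0.07 (without MOF cKO 1). Of 359 tested genes named, 44 lost their call under library totals, 12 under upper-quartile scaling, 112 under glmTreat, 3 with RLE factors, 2 with DESeq2 and 1 without ribosomal protein genes in the scaling. Without control 1, 21 lost it (Acad10, Cep135, Decr1, Ecsit, Egr1, Fos, H2-Eb1, Il1b, Intu, Isg15, Mtx1, Ndufb10, Neil1, Pmpcb, Prpf6, Rfx1, Rfxank, Smad1, St14, Ttc30b and Usp18). Without control 2, 25 lost it (Aloxe3, Areg, Asns, Coa3, Cpt1a, Egfr, Grip1, H2-Eb1, Hhip, Hoxa5, Il1a, Isg15, Itgav, Kansl2, Lgr6, Mks1, Ndufb10, Neil1, Pard6b, Prdm1, Smad1, St14, Ttc30b, Usp18 and Vars2). Without MOF cKO 1, 34 lost it (Acad10, Coa3, Cpt1a, Ddb2, Dsc2, Dsg3, Egfr, Egr1, Eif4ebp1, Fos, Gpx2, Grip1, Gstm1, Il1a, Il1b, Isg15, Itgav, Kansl2, Lgr6, Mks1, Mmp10, Mtx1, Ndufb10, Pard6b, Pmpcb, Prdm1, Prpf6, Rfx1, Rfxank, Rsad2, Sars2, Usp18, Vars2 and Wif1). Without MOF cKO 2, 30 lost it (Aloxe3, Areg, Cep135, Coa3, Col18a1, Dlk1, Ecsit, Fos, H2-Eb1, Hhip, Hoxa5, Il1a, Intu, Isg15, Lgr6, Llgl2, Meg3, Mtx1, Neil1, Pard6b, Pfkp, Plec, Pmpcb, Polrmt, Rfx1, Smad1, St14, Ttc30b, Usp18 and Vars2). No called gene named above turned its direction. Genes that were not called and whose log2 difference changed sign are as follows. Over the omissions of a library, the log2 difference ranged from -0.88 to 0.53 for Alox12b, from -0.46 to 0.15 for Atf3, from -0.11 to 0.049 for Ccnb1, from -0.029 to 0.35 for Cdk1, from -0.12 to 0.38 for Col4a1, from -0.054 to 0.34 for Dst, from -0.022 to 0.44 for Hspa5, from -0.20 to 0.15 for Jun, from -0.062 to 0.38 for Junb, from -0.031 to 0.12 for Kansl3, from -0.26 to 0.14 for Krt5, from -0.31 to 0.061 for Lamb3, from -0.20 to 0.0048 for Mcrs1, from -0.12 to 0.075 for Msl1, from -0.019 to 0.16 for Msl2, from -0.22 to 0.30 for Phf20l1, from -0.22 to 0.056 for Rfx2, from -0.013 to 0.20 for Slc2a1, from -0.050 to 0.083 for Smo, from -0.11 to 0.39 for Sox9, from -0.12 to 0.022 for Uqcrc1, from -0.13 to 0.0062 for Wnt10b and from -7.11 to 0.10 for Xist. With RLE factors, the log2 difference was Alox12b 0.010, Ccnb1 0.0010 and Msl1 0.0010. With library totals alone, the log2 difference was Axin2 -0.14, Cdk1 -0.12, Col4a1 -0.16, Dst -0.17, Epcam -0.076, Hspa5 -0.079, Junb -0.16, Kansl1 -0.17, Kansl3 -0.26, Klf4 -0.12, Krt14 -0.10, Krt77 -0.20, Lama3 -0.14, Msl2 -0.23, Msl3 -0.17, Pcna -0.084, Phf20 -0.13, Phf20l1 -0.24, Slc2a1 -0.21, Smo -0.29, Sostdc1 -0.0075, Sox9 -0.14 and Tfam -0.16. With upper-quartile factors, the log2 difference was Kansl3 -0.017, Phf20l1 -0.0027 and Smo -0.051. The causes were not tested, apart from fewer libraries or another scaling by construction. At this depth 1 count is 0.0326 to 0.0502 CPM, so that differences among genes under 1 CPM were rarely detectable.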
